A study of Arabidopsis thaliana with 6 samples.

Results

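Root transcripts of Arabidopsis thaliana treated with aluminium ions were compared with those of roots treated with aluminium oxide nanoparticles (nAl2O3). The comparison rests on 2 RNA-seq libraries of each treatment, from a study of 6 libraries that also holds 2 of untreated control roots. It covers the 19648 loci, of 24438 listed, with at least 1 RPKM (reads per length of the gene model and per size of the library) in at least 2 of the 6 libraries. Plants of all 3 groups were wild type of the Columbia ecotype at the vegetative stage, and the tissue was root. The control group received no aluminium, the nanoparticle group nAl2O3 and the ion group an aluminium ion treatment. The doses, exposure times, aluminium salt and growth medium are given nowhere in the labels. For the second nanoparticle library, titled N2, other labels spell the compound nAl2O4; it was kept with N1. The libraries are called N1 and N2, I1 and I2, and C1 and C2 below, and a p given "without N1" is from the fit that leaves that library out. The labels do not state whether the libraries of 1 group are separate cultures, and p-values therefore reflect the spread of these libraries, perhaps a technical one.

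Aluminium ions are toxic to roots in acid soil, where they stop elongation at the root tip. In Arabidopsis the zinc-finger regulator STOP1 switches on ALMT1, a channel that releases malate, which binds aluminium outside the root. Aluminium also binds phosphate and displaces other nutrient ions, and plants short of phosphate or sulphate run well-known gene programmes: phosphate shortage acts through PHR1, SPX proteins, the microRNA miR399 and the RNA IPS1, and sulphate shortage through SLIM1, LSU and SDI genes and sulphate transporters. Oxide nanoparticles are particles of a sparingly soluble solid that can release some ions. How far roots given particles differ from roots given ions is the question this comparison addresses.

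The libraries held between 12318429 and 14489392 reads, and 18499 to 18893 loci reached 1 RPKM in each. An RPKM below 0.207 to 0.244, depending on the library, stood for under 3 reads of a 1 kb gene. The root markers SCR (18.5 and 19.3 RPKM with nanoparticles and 23.8 and 21.2 with ions), SMB (4.06 and 3.29 against 4.15 and 6.04) and CASP1 (233 and 250 against 163 and 130) were present in both groups. Transcripts of a 26-gene photosynthesis list made up 0.0282% and 0.0595% of reads in N1 and N2 and 0.0122% and 0.0118% in I1 and I2. Ribosomal RNA genes took 0.0922% and 0.118% of nanoparticle reads and 0.247% and 0.275% of ion reads, and mitochondrial genes 0.0183% and 0.022% against 0.139% and 0.0991%. Whether this has a part in any result was not tested. Libraries of one group differed by a root mean square SD, on the log2 scale, of 0.45 in the controls, 0.19 in the nanoparticle roots and 0.298 in the ion roots.

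In the ion roots 2622 loci (13.3% of those tested) were higher than in the nanoparticle roots and 2347 (11.9%) were lower, 4969 (25.3%) in all, by limma on log2(RPKM + 1) with a Benjamini-Hochberg adjusted p under 0.05. Counts by fold use this scale: 3477 of 4969 (17.7% of all loci) differed at least 2-fold, and 137 higher and 238 lower loci 8-fold. The median log2 fold change of all loci was 0.13 and the median SE 0.23, and folds below are read against that shift. Without another comparison named, higher and lower below mean ion against nanoparticle roots. With the median-of-ratios scaling of the RPKM values, which brings the median to 0.004, 1948 loci were higher and 2769 lower, so the balance between the directions depended on the scaling. Both ion libraries lay above both nanoparticle libraries at 8946 loci (45.5%), below both at 6024 (30.7%), and overlapped with them at 4678 (23.8%).

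The nanoparticle roots were close to the controls by the same test. No locus passed between them (0% of the 19648 higher and 0% lower in limma, smallest adjusted p = 0.595), while 1307 had an unadjusted p under 0.05; a missed threshold does not show that these groups were alike. Between ion and control roots 2418 loci were higher and 2028 lower. Both comparisons share libraries with the comparison of ion and nanoparticle roots, so the control values are given beside the others as levels only. Leaving out 1 of the 4 libraries compared left 1825 called loci without N1, 1351 without N2, 2183 without I1 and 2428 without I2, and leaving out a control gave 4689 higher and 3412 lower loci without C1 and 4657 and 3411 without C2. The plot of group means shows the spread of these differences.

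**Figure D1:**
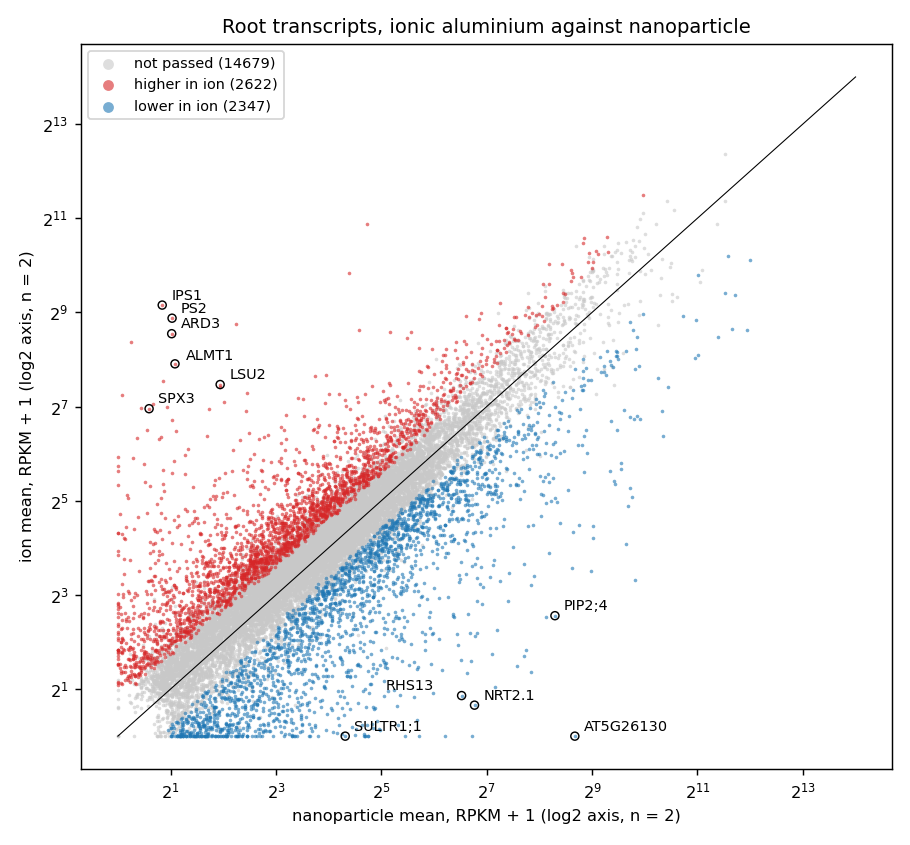
Mean RPKM + 1 of each of the 19648 loci in the 2 nanoparticle libraries (x, log2 axis) and the 2 ion libraries (y, log2 axis), with loci that passed the test in red (2622 higher in ion) and blue (2347 lower) and the others in grey; the line marks equal levels. IPS1, PS2, ARD3 and ALMT1 lie far above the line at 0.792, 1.04, 1.03 and 1.12 RPKM with nanoparticles, and AT5G26130 lies far below it with no read in the ion libraries.

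Gene groups of the root's ion, nutrient, stress and developmental programmes were described through 38 lists of genes. The plot of all lists orders them by their median. Lipid remodelling (median log2 fold change 3.24), phosphate scavenging (2.52) and salicylate genes (2.09) stood at the top, and root hair genes (-3.09), aquaporins (-1.88) and xylem genes (-1.40) at the bottom. Counts of called members are read against the 25.3% of all loci that were called.

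**Figure D2:**
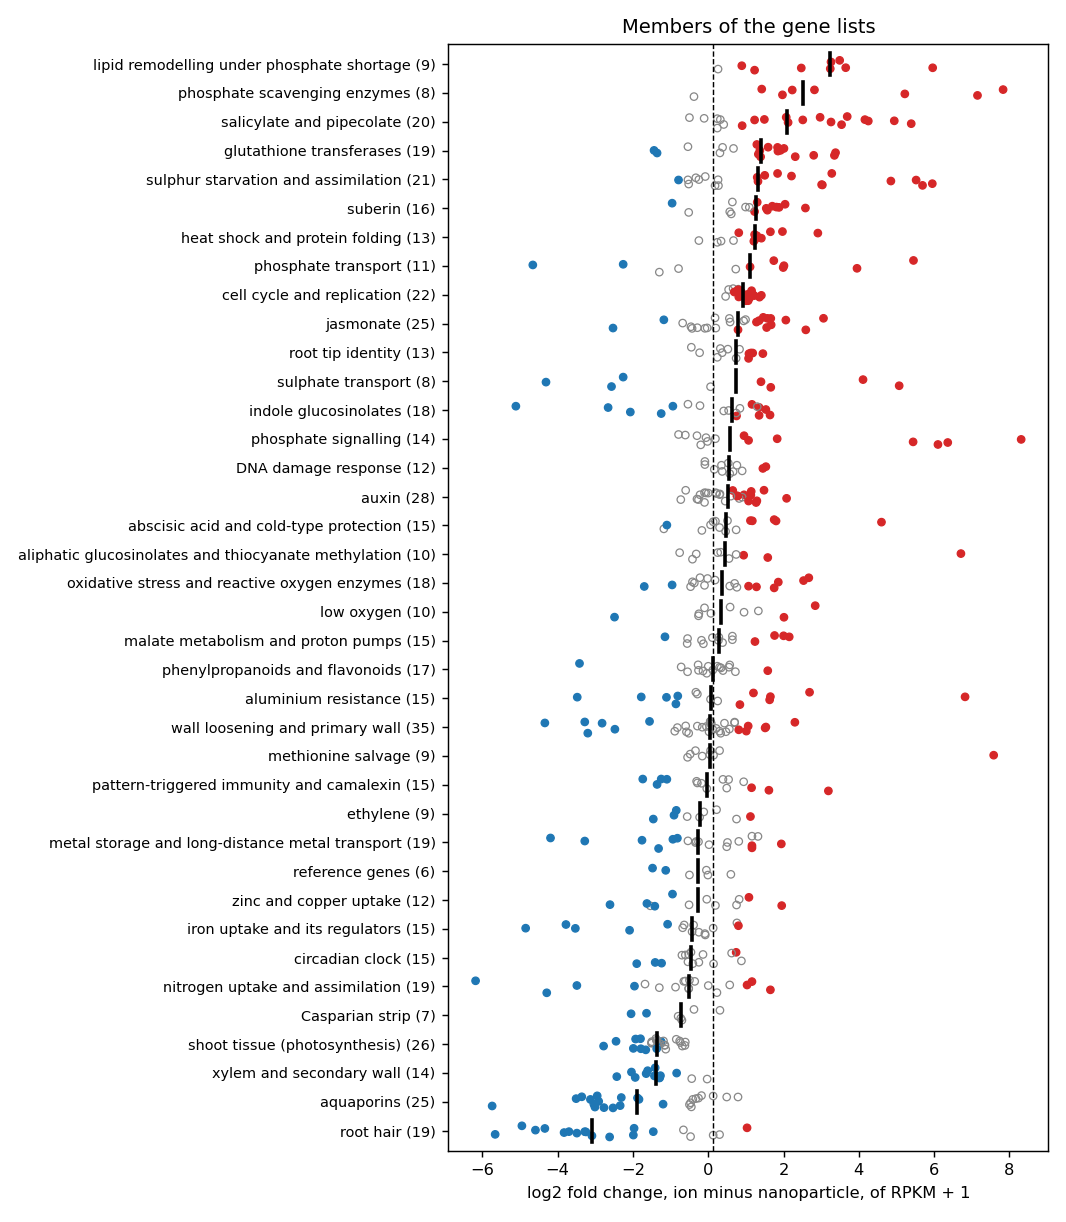
Log2 fold change (ion minus nanoparticle, log2(RPKM + 1) scale) of every tested member of the 38 gene lists; filled points passed the test, black ticks are list medians and the dashed line is the median of all loci, 0.13. Lists run from lipid remodelling, with a median of 3.24, to root hair genes, with a median of -3.09.

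Phosphate-starvation genes make up both lists with the highest medians, and 3 kinds of sequence are known for their regulation. The first are the microRNAs whose precursors were found only in the ion libraries among the 6. MiR399 directs cleavage of the transcript of PHO2, an enzyme that lowers phosphate transport, and miR827 targets NLA, another such regulator. The mature sequences, from RefSeq on TAIR10.1, are shown 5′ to 3′ with the seed, bases 2 to 8, in capitals; the miR399 precursors give the same mature strand and so share a seed, while miR827 has another.
miR399b (chr1:23345387-23345407, minus strand): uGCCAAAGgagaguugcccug
miR399c-3p (chr5:24962568-24962588, plus strand): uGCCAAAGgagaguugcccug
miR827 (chr3:22122811-22122831, minus strand): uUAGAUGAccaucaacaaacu

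The second are the sites in IPS1 and AT4, non-coding RNAs that bind miR399 without being cut, because 3 extra bases face the cleavage position. The capitals mark the bases that pair with miR399b, 18 of its 21; the best other site in these RNAs pairs with 11 and 10 bases.
IPS1 (chr3:3051224-3051247, plus strand): ttGGGCAACTtctaTCCTTTGGCA
AT4 (chr5:895149-895172, plus strand): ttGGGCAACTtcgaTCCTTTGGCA

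The third are promoters holding the P1BS motif GNATATNC, which PHR1 binds. Within 250 bases before the gene start, on either strand, it was found at 1066 of 19484 tested loci (5.47%), at 7.31% of the higher, 5.83% of the lower and 5.09% of the other loci. Of the 42 members of the 4 phosphate lists with a window, 9 (21.4%) held it: 7 of the 28 higher ones (25%) and 2 of the 14 others (14.3%). A match is a description and not a bound site. The windows of IPS1 and PEPC1 hold no such letters. The windows of PS2, SPX3 and AT4, shown 5′ to 3′ on the strand of the gene with the motif in capitals, are from the same RefSeq assembly.
PS2 (chr1:27466349-27466598, minus strand): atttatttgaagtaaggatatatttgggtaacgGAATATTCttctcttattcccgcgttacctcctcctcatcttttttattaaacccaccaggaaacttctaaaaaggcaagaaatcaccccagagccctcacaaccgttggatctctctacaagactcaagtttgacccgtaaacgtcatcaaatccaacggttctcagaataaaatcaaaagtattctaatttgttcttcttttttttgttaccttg
SPX3 (chr2:18606160-18606409, plus strand): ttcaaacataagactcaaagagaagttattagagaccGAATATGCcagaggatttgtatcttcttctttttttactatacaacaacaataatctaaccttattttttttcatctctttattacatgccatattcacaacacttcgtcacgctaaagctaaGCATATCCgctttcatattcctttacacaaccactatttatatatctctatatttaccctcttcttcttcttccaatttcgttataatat
AT4 (chr5:894332-894581, plus strand): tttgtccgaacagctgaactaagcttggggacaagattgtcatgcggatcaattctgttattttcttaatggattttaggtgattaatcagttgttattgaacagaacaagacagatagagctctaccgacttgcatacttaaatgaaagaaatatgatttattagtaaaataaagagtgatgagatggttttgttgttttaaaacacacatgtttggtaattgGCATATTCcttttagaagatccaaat

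Transcripts of these regulators separated the groups without overlap. The precursor loci were chosen after their values were seen. The MIR399b precursor locus had no read in the nanoparticle and control libraries and RPKM of 19.8 and 17.7 in the ion libraries. MIR399c likewise had no read in those 4 libraries, against 49.1 and 48 RPKM in I1 and I2. MIR827 had none in them either and reached 61.7 and 58 RPKM in the ion libraries. All 3 were read only in ion roots: MIR399b was at least 23.4-fold higher, MIR399c at least 51.4-fold and MIR827 at least 57.7-fold. These loci passed the filter on low values through the ion libraries alone, so they had to differ and no test is given. A bound against a group at 0 is taken against 3 reads over its libraries. These are reads on the precursor loci and not levels of the mature microRNAs.

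Of the 14 phosphate signalling genes tested, 7 were higher in the ion than in the nanoparticle roots (median log2 fold change 0.57, against 0.13 for all loci). IPS1 (AT3G09922), the miR399 mimic shown above, was at RPKM of 0.669 and 0.916 with nanoparticles, 634 and 504 with ions and 0.637 and 0.809 in controls. Both ion libraries stood far above the other 4, which were all under 1 RPKM. IPS1 was 711-fold higher (log2 fold change 8.31 ± 0.20 SE). AT4 (AT5G03545), its relative with the second mimic site, was measured at RPKM of 21.3 and 30 with nanoparticles, 1328 and 2450 with ions and 23.8 and 5.57 in controls. The groups did not overlap, and AT4 was 75.1-fold higher (log2 fold change 6.10 ± 0.61 SE, adjusted p = 0.00107). SPX3 (AT2G45130), a small protein that senses inositol pyrophosphates and holds PHR1 back, had RPKM of 0.396 and 0.62 with nanoparticles, 110 and 136 with ions and 0.527 and 0.239 in controls. SPX1 (AT5G20150), a second such repressor, was at RPKM of 18.2 and 21.6 with nanoparticles, 775 and 1047 with ions and 24.8 and 33.2 in controls. Both SPX genes were far above every nanoparticle and control library in ion roots. SPX3 was 243-fold higher (log2 fold change 6.36 ± 0.22 SE) and SPX1 46.2-fold higher (log2 fold change 5.44 ± 0.24 SE, adjusted p = 7.62e-05). IPS1 and SPX3 passed the filter on low values through the ion libraries alone, so they had to differ and no test is given. PHR1 (AT4G28610), the regulator itself, was measured at RPKM of 44.4 and 49.1 with nanoparticles, 40.1 and 35.7 with ions and 45.5 and 66.7 in controls. Its levels lay slightly below those of the nanoparticle libraries, and the difference did not pass (log2 fold change -0.30 ± 0.22 SE, adjusted p = 0.369).

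Phosphate transporters went both ways. Among 11 tested, 6 were higher and 2 lower in ion roots, with a median log2 fold change of 1.11. The number higher was 3 with an RPKM filter of 5, against 6 otherwise. Members lower numbered 1 without N1 or without N2 or without I1, against 2 otherwise. PHT1;4 (AT2G38940), a high-affinity uptake carrier of roots, had RPKM of 3.74 and 4.26 with nanoparticles, 64.8 and 89 with ions and 3.96 and 2.08 in controls. PHT1;5 (AT2G32830), which moves phosphate between organs, was at RPKM of 0.333 and 0.448 with nanoparticles, 3.59 and 5.85 with ions and 0.159 and 0.504 in controls. Both were higher in each ion library than in any other library: PHT1;4 was 19.4-fold higher (log2 fold change 3.95 ± 0.28 SE, adjusted p = 3.96e-04) and PHT1;5 12.3-fold higher (log2 fold change 2.01 ± 0.28 SE). G3PP1 (AT3G47420), a glycerol-3-phosphate permease of phosphate-starved roots, was measured at RPKM of 2.55 and 3.13 with nanoparticles, 140 and 197 with ions and 2.12 and 1.12 in controls. G3PP1 was 60-fold higher (log2 fold change 5.45 ± 0.27 SE, adjusted p = 9.44e-05), with no overlap. PHT1;3 (AT5G43360), another uptake carrier, had RPKM of 20.2 and 29.2 with nanoparticles, 0 and 0 with ions and 7.32 and 4.34 in controls. No read of PHT1;3 was found in either ion library, and it was at least 343-fold lower (log2 fold change -4.66 ± 0.29 SE, adjusted p = 2.28e-04). PHT1;1 (AT5G43350), the most abundant of these carriers in the nanoparticle roots, was at RPKM of 137 and 152 with nanoparticles, 21.9 and 39.3 with ions and 114 and 36.1 in controls. Both ion libraries were below both nanoparticle libraries, while C2 lay between the ion libraries, and PHT1;1 was 4.63-fold lower (log2 fold change -2.26 ± 0.52 SE, adjusted p = 0.0221); its adjusted p was 0.0907 without N1, 0.126 without N2, 0.155 without I1 and 0.0657 without I2. PHT1;1 and PHT1;3 are adjacent and close in sequence, so reads may have been split between them. PHO1 (AT3G23430), which loads phosphate into the xylem, was measured at RPKM of 298 and 302 with nanoparticles, 128 and 234 with ions and 331 and 385 in controls. Both ion libraries were lower than both nanoparticle libraries, but the difference did not pass (log2 fold change -0.79 ± 0.31 SE, adjusted p = 0.111, but 0.0497 without I2).

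Of 8 enzymes that release phosphate from organic compounds, 7 were higher in ion roots, with a median log2 fold change of 2.52. PS2 (AT1G73010), annotated as inorganic pyrophosphatase 1, had RPKM of 1.17 and 0.908 with nanoparticles, 395 and 544 with ions and 2.06 and 1.5 in controls. PEPC1 (AT1G17710), annotated as a phosphatase-related protein, was at RPKM of 0.119 and 0 with nanoparticles, 124 and 179 with ions and 0.17 and 0.0599 in controls. Both stood at about 1 RPKM or less with nanoparticles and at over 100 with ions. PS2 was 457-fold higher (log2 fold change 7.83 ± 0.23 SE, adjusted p = 2.61e-05), and PEPC1 was higher by a ratio of reads of 2606, exact 95% counting interval 721 to 21527 (log2 fold change 7.15 ± 0.24 SE). PAP17 (AT3G17790), a purple acid phosphatase, was measured at RPKM of 1.97 and 2.62 with nanoparticles, 111 and 133 with ions and 2.31 and 2.45 in controls. PAP17 was 53.3-fold higher (log2 fold change 5.22 ± 0.20 SE, adjusted p = 5.35e-05). PAP10 (AT2G16430, a secreted purple acid phosphatase of the root surface) was higher in both ion libraries than in all others and 2.93-fold higher (log2 fold change 1.42 ± 0.21 SE, adjusted p = 0.00464), with an adjusted p of 0.0635 without N2.

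Phosphate shortage also makes plants replace phospholipids with galactolipids and sulpholipids. Of 9 tested genes of this exchange 8 were higher in ion roots (median log2 fold change 3.24). All 9 had both ion libraries above both nanoparticle libraries, against 45.5% of all loci. MGD3 (AT2G11810), which makes a galactolipid, had RPKM of 0.177 and 0.39 with nanoparticles, 65.1 and 95.1 with ions and 0.0422 and 0.402 in controls. SQD2 (AT5G01220), which makes sulpholipid, was at RPKM of 10.2 and 10.6 with nanoparticles, 133 and 152 with ions and 9.74 and 11 in controls. PLDP2 (AT3G05630), a phospholipase D of the zeta type, was measured at RPKM of 0.62 and 0.425 with nanoparticles, 14 and 18.5 with ions and 0.669 and 0.438 in controls. None of the 3 overlapped between groups. MGD3 was 285-fold higher (log2 fold change 5.96 ± 0.27 SE), SQD2 13.8-fold higher (log2 fold change 3.65 ± 0.17 SE, adjusted p = 8.62e-05) and PLDP2 31.5-fold higher (log2 fold change 3.49 ± 0.23 SE). Over the 4 phosphate lists the controls lay beside the nanoparticle roots, with medians of nanoparticle minus control of -0.01, 0.40, 0.00 and 0.08 in the order described. Leaving out each of the 4 libraries in turn (N1, N2, I1, I2) left 5, 5, 5 and 6 higher signalling genes, 6, 6, 7 and 7 scavenging enzymes and 6, 6, 6 and 6 lipid genes.

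The aluminium-resistance genes did not move as one. Of 15 tested, 6 were higher and 5 lower in ion than in nanoparticle roots, and the median log2 fold change was 0.06, which turned to -0.08 with median-of-ratios scaling, -0.04 with quantile normalization and -0.08 without N2. For the lower members the count was 2 without N1 or without I1, 1 without N2 or without I2 and 3 with no filter on low values, against 5 otherwise. ALMT1 (AT1G08430), the malate channel, had RPKM of 1.34 and 0.906 with nanoparticles, 246 and 231 with ions and 0.926 and 1.12 in controls. The ion libraries held over 200 RPKM and the other 4 about 1. ALMT1 was 212-fold higher (log2 fold change 6.82 ± 0.20 SE, adjusted p = 2.61e-05). STOP1 (AT1G34370), the regulator that activates ALMT1, was at RPKM of 116 and 119 with nanoparticles, 66.6 and 62.1 with ions and 120 and 180 in controls. STOP1 transcripts were below the nanoparticle levels in both ion libraries and 1.83-fold lower (log2 fold change -0.86 ± 0.23 SE, adjusted p = 0.0388). This call was not held by every fit: the adjusted p was 0.182 without N1, 0.241 without N2, 0.144 without I1 and 0.16 without I2, and 0.0522 with no filter on low values and 0.0649 with quantile normalization.

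PGIP2 (AT5G06870), a polygalacturonase inhibitor protein of the wall, was measured at RPKM of 0 and 0.0608 with nanoparticles, 5.71 and 5.6 with ions and 0.355 and 0.689 in controls. HVA22D (AT4G24960), a stress-induced membrane protein, had RPKM of 35.4 and 30.7 with nanoparticles, 96 and 117 with ions and 37.9 and 33 in controls. Both were highest in the 2 ion libraries. PGIP2 was higher by a ratio of reads of 184, exact 95% counting interval 32.5 to 7298 (log2 fold change 2.69 ± 0.22 SE) and HVA22D 3.24-fold higher (log2 fold change 1.65 ± 0.19 SE, adjusted p = 0.00182). TDT (AT5G47560), the malate carrier of the vacuole, was at RPKM of 123 and 153 with nanoparticles, 12.2 and 10.6 with ions and 116 and 47.5 in controls. TDT went down with no overlap and was 12.2-fold lower (log2 fold change -3.48 ± 0.39 SE, adjusted p = 0.00165). GDH1 (AT5G18170, a glutamate dehydrogenase) was lower in both ion libraries than in all others, 3.48-fold lower (log2 fold change -1.78 ± 0.28 SE, adjusted p = 0.00563), with an adjusted p of 0.0719 without N2 and 0.052 without I2. CIPK23 (AT1G30270, a kinase that acts on potassium and nitrate transporters) was 2.17-fold lower (log2 fold change -1.11 ± 0.19 SE, adjusted p = 0.00818), and its adjusted p was 0.0781 without N1, 0.119 without N2, 0.0532 without I1 and 0.0556 without I2. ALS3 (AT2G37330, an ABC-type transporter needed for aluminium tolerance, named after its values were seen) overlapped between groups (log2 fold change 0.06 ± 0.23 SE, adjusted p = 0.876).

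Genes that make malate and pump protons were mostly not called. Of 15 tested, 4 were higher, all in the phosphoenolpyruvate carboxylase branch, and 1 was lower (median log2 fold change 0.28). PPC2 (AT2G42600), a phosphoenolpyruvate carboxylase, was measured at RPKM of 24.4 and 23.4 with nanoparticles, 107 and 113 with ions and 27.8 and 24.6 in controls. PPC1 (AT1G53310), another isoform, had RPKM of 46.7 and 40.2 with nanoparticles, 103 and 105 with ions and 50.4 and 48.4 in controls. PPCK1 (AT1G08650), a kinase that activates the enzyme, was at RPKM of 71.5 and 76.2 with nanoparticles, 290 and 307 with ions and 61.6 and 36.5 in controls. Each ion library exceeded each nanoparticle library. PPC2 was 4.6-fold higher (log2 fold change 2.15 ± 0.17 SE, adjusted p = 4.94e-04), PPC1 2.39-fold higher (log2 fold change 1.24 ± 0.17 SE, adjusted p = 0.00361) and PPCK1 4.05-fold higher (log2 fold change 2.00 ± 0.26 SE, adjusted p = 0.00304); the adjusted p of PPC1 was 0.0693 without N2. PPCK2 (AT3G04530), the second kinase, was measured at RPKM of 12.2 and 11.2 with nanoparticles, 33.9 and 51.5 with ions and 9.13 and 6.49 in controls. PPCK2 was 3.71-fold higher (log2 fold change 1.76 ± 0.26 SE, adjusted p = 0.00452). PPC3 (AT3G14940, a further carboxylase isoform) overlapped between groups (log2 fold change 0.38 ± 0.31 SE, adjusted p = 0.403). AHA2 (AT4G30190, a plasma membrane proton pump) was 2.16-fold lower (log2 fold change -1.15 ± 0.32 SE, adjusted p = 0.0414), and its adjusted p was 0.183 without N1, 0.195 without N2, 0.228 without I1 and 0.0727 without I2 and 0.0661 with no filter on low values.

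Sulphate transporters went both ways: of 8 tested, 4 were higher and 3 lower in ion roots (median log2 fold change 0.73). SULTR1;1 (AT4G08620), a high-affinity uptake carrier that sulphur shortage normally raises, had RPKM of 17.1 and 20.7 with nanoparticles, 0 and 0 with ions and 14.9 and 9.8 in controls. SULTR1;2 (AT1G78000), the main uptake carrier of the root, was at RPKM of 118 and 119 with nanoparticles, 27.6 and 20.6 with ions and 123 and 83.4 in controls. Both were lower in ion roots than in every other library: SULTR1;1 was at least 387-fold lower (log2 fold change -4.31 ± 0.25 SE, adjusted p = 1.63e-04) and SULTR1;2 4.96-fold lower (log2 fold change -2.26 ± 0.25 SE, adjusted p = 0.00145). SULTR2;1 (AT5G10180), which loads sulphate into the vascular system, was measured at RPKM of 2.76 and 3.35 with nanoparticles, 139 and 131 with ions and 2.91 and 4.99 in controls. SULTR1;3 (AT1G22150), a phloem carrier, had RPKM of 0 and 0 with nanoparticles, 8.98 and 28.7 with ions and 0.07 and 0.0371 in controls. These rose: SULTR2;1 was 44.1-fold higher (log2 fold change 5.07 ± 0.24 SE, adjusted p = 8.87e-05) and SULTR1;3 at least 359-fold higher (log2 fold change 4.11 ± 0.47 SE). SULTR2;2 (AT1G77990), a low-affinity carrier, was at RPKM of 6.84 and 8.44 with nanoparticles, 0.553 and 0.35 with ions and 6.48 and 8.89 in controls. SULTR2;2 was 17.2-fold lower (log2 fold change -2.57 ± 0.24 SE, adjusted p = 7.98e-04). SULTR3;4 (AT3G15990) was measured at RPKM of 5.56 and 3.96 with nanoparticles, 11.3 and 25.5 with ions and 5.87 and 3.43 in controls. The ion libraries were higher but unlike each other, and SULTR3;4 was 3.99-fold higher (log2 fold change 1.66 ± 0.40 SE, adjusted p = 0.0263), with an adjusted p of 0.0812 without N1, 0.171 without N2 and 0.115 without I2.

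Sulphur-starvation and assimilation genes were mostly higher: 12 of 21, with 1 lower and a median log2 fold change of 1.32. SDI1 (AT5G48850), which represses glucosinolate synthesis under sulphur shortage, had RPKM of 1.29 and 0.76 with nanoparticles, 121 and 87.4 with ions and 0.678 and 0.718 in controls. LSU2 (AT5G24660), a small protein named for its response to low sulphur, was at RPKM of 2.74 and 2.93 with nanoparticles, 157 and 196 with ions and 1.74 and 0.131 in controls. GGCT2;1 (AT5G26220), a glutathione-degrading enzyme, was measured at RPKM of 0.544 and 0.381 with nanoparticles, 99.4 and 80.6 with ions and 0.963 and 0.157 in controls. All 3 were near or below 3 RPKM outside the ion roots. SDI1 was 100-fold higher (log2 fold change 5.69 ± 0.24 SE, adjusted p = 7.18e-05), LSU2 62.7-fold higher (log2 fold change 5.52 ± 0.40 SE, adjusted p = 3.96e-04) and GGCT2;1 194-fold higher (log2 fold change 5.95 ± 0.29 SE). APR1 (AT4G04610), a reductase of sulphate assimilation, had RPKM of 17.8 and 17.1 with nanoparticles, 111 and 196 with ions and 18.2 and 11.6 in controls. APR1 was 8.97-fold higher (log2 fold change 3.01 ± 0.32 SE, adjusted p = 0.00129). OASA1 (AT4G14880, a cytosolic cysteine synthase), the only member lower in ion roots, was 1.72-fold lower (log2 fold change -0.79 ± 0.20 SE, adjusted p = 0.0315), and its adjusted p was 0.187 without N1, 0.254 without N2, 0.162 without I1 and 0.0852 without I2. Both sulphur lists differed little between nanoparticle and control roots, with medians of 0.02 and 0.00. Without N1, N2, I1 or I2, 11, 9, 12 and 12 genes of the assimilation list were higher.

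In methionine salvage, the cycle that recycles the sulphur of methylthio groups, 1 of 9 genes passed. ARD3 (AT2G26400), an acireductone dioxygenase, was at RPKM of 1.57 and 0.484 with nanoparticles, 367 and 378 with ions and 1.81 and 0.748 in controls. ARD3 was 366-fold higher (log2 fold change 7.58 ± 0.33 SE, adjusted p = 7.41e-05), without overlap. MTK (AT1G49820, the kinase of the cycle) was slightly lower in both ion libraries and did not pass (log2 fold change -0.34 ± 0.19 SE, adjusted p = 0.237). The list's median log2 fold change was 0.04 and turned to -0.10 with median-of-ratios scaling, -0.18 without I1 and -0.09 without I2.

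The core of iron uptake was lower in ion roots. Of 15 genes tested 5 were lower and 1 was higher (median log2 fold change -0.43), and the nanoparticle roots lay above the controls by a median of 1.04 with no gene passing. FIT (AT2G28160), the main transcription factor of iron uptake, was measured at RPKM of 32.5 and 32.3 with nanoparticles, 2.21 and 1.61 with ions and 19.4 and 8.32 in controls. IRT1 (AT4G19690), the iron carrier of the root surface, had RPKM of 28.7 and 32.2 with nanoparticles, 0 and 0.189 with ions and 11.7 and 3.4 in controls. FRO2 (AT1G01580), the ferric reductase, was at RPKM of 15.2 and 19 with nanoparticles, 0.236 and 0.379 with ions and 7.76 and 3.09 in controls. All 3 were lower in both ion libraries than in all others and highest with nanoparticles. FIT was 17.2-fold lower (log2 fold change -3.53 ± 0.36 SE, adjusted p = 0.00112), IRT1 300-fold lower (log2 fold change -4.85 ± 0.46 SE, adjusted p = 8.93e-04) and FRO2 54.8-fold lower (log2 fold change -3.78 ± 0.36 SE, adjusted p = 9.39e-04). BGLU42 (AT5G36890, a beta-glucosidase that acts on coumarins) was 1.82-fold higher (log2 fold change 0.80 ± 0.20 SE, adjusted p = 0.0271), with an adjusted p of 0.151 without N1, 0.203 without N2, 0.142 without I1 and 0.0841 without I2. The subgroup Ib bHLH partners of FIT, named after their values were seen, were at odds between the ion libraries. BHLH38 (AT3G56970) was measured at RPKM of 4.05 and 4.28 with nanoparticles, 0.089 and 20.7 with ions and 1.06 and 0.561 in controls. BHLH100 (AT2G41240) had RPKM of 3.54 and 3.56 with nanoparticles, 0 and 7.03 with ions and 0.266 and 0.563 in controls. I1 lay below and I2 above both nanoparticle libraries at both genes, so that neither was a group difference (log2 fold change -0.09 ± 1.19 SE, adjusted p = 0.965 and log2 fold change -0.68 ± 0.84 SE, adjusted p = 0.583).

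Among 19 genes of metal storage and transport in the plant, 3 were higher and 6 lower in ion roots, with a median log2 fold change of -0.26 that turned to 0.04 without I1. The count of higher members was 1 without N1 or without N2 and 6 without C1 or without C2, against 3 otherwise. The lower count was 3 without N1 or without N2 or without I1, against 6 otherwise. IREG2 (AT5G03570), a transporter that loads metals into the vacuole, was at RPKM of 30 and 34.6 with nanoparticles, 0.771 and 0.863 with ions and 28.6 and 12.7 in controls. NAS1 (AT5G04950), a nicotianamine synthase, was measured at RPKM of 20.8 and 19.9 with nanoparticles, 0.391 and 2.48 with ions and 10.9 and 4.81 in controls. HMA3 (AT4G30120), annotated as a heavy metal ATPase, had RPKM of 2.22 and 2.66 with nanoparticles, 0 and 0.0306 with ions and 2.02 and 1.08 in controls. Each ion library lay below each nanoparticle library. IREG2 was 39.4-fold lower (log2 fold change -4.19 ± 0.35 SE, adjusted p = 6.21e-04), NAS1 13.5-fold lower (log2 fold change -3.28 ± 0.49 SE, adjusted p = 0.00467) and HMA3 lower by a ratio of reads of 149, exact 95% counting interval 26.3 to 5906 (log2 fold change -1.76 ± 0.26 SE, adjusted p = 0.00435). YSL2 (AT5G24380), a carrier of metals bound to nicotianamine, was at RPKM of 4.6 and 5.07 with nanoparticles, 15.7 and 28.9 with ions and 4.47 and 3.9 in controls. YSL2 was 4.71-fold higher (log2 fold change 1.94 ± 0.29 SE, adjusted p = 0.00498). FER3 (AT3G56090, a ferritin that stores iron) was 2.29-fold higher (log2 fold change 1.16 ± 0.29 SE, adjusted p = 0.0291), with an adjusted p of 0.0898 without N1, 0.213 without N2 and 0.168 without I1. NRAMP3 (AT2G23150, which releases iron from the vacuole) was 2.35-fold higher (log2 fold change 1.16 ± 0.17 SE, adjusted p = 0.00432), with an adjusted p of 0.0575 without N1 and 0.0572 without N2. FER1 (AT5G01600, the iron-induced ferritin) did not pass, and its I1 level was far above that of I2 (log2 fold change 1.32 ± 0.48 SE, adjusted p = 0.088, but 0.0316 without C1 and 0.0326 without C2).

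Zinc and copper uptake genes split as well, 2 higher and 4 lower of 12 (median log2 fold change -0.28, 0.50 with an RPKM filter of 5). The number higher was 1 without N1 or without N2 or without I2, against 2 otherwise. Members lower numbered 2 without N1, 0 without N2 and 1 without I1 or without I2 or with an RPKM filter of 5, against 4 otherwise. ZIP1 (AT3G12750), a zinc carrier, was measured at RPKM of 4.52 and 4.22 with nanoparticles, 17 and 22.9 with ions and 3.81 and 4.97 in controls. ZIP1 was 4.61-fold higher (log2 fold change 1.95 ± 0.22 SE, adjusted p = 0.00178). IRT3 (AT1G60960, a zinc and iron carrier) was 2.27-fold higher (log2 fold change 1.08 ± 0.22 SE, adjusted p = 0.0153), with an adjusted p of 0.102 without N1, 0.122 without N2 and 0.0797 without I2. COPT2 (AT3G46900), a copper carrier, had RPKM of 3.3 and 7.7 with nanoparticles, 0 and 0 with ions and 2.71 and 0.459 in controls. FRO4 (AT5G23980), a copper reductase, was at RPKM of 1.38 and 2.01 with nanoparticles, 0 and 0 with ions and 0.459 and 0.453 in controls. Neither had a read in the ion libraries. COPT2 was at least 31.1-fold lower (log2 fold change -2.61 ± 0.50 SE, adjusted p = 0.0115), a call lost without N2, I1 or I2. FRO4, 1 of the 4 lower, fell at least 34-fold (log2 fold change -1.42 ± 0.23 SE). Only nanoparticle libraries took it past the filter, so no test is given. ZIP9 (AT4G33020) was at least 19.4-fold lower (log2 fold change -1.63 ± 0.41 SE, adjusted p = 0.0301), with an adjusted p of 0.146 without N1, 0.113 without N2, 0.137 without I1 and 0.123 without I2. ZIP4 (AT1G10970, another zinc carrier) was higher in both ion libraries and just missed the threshold (log2 fold change 0.82 ± 0.25 SE, adjusted p = 0.0558, but 0.0413 without C1, 0.0415 without C2 and 0.0429 without I1).

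The high-affinity nitrate carrier and its partner were lower in ion roots. Of 19 nitrogen genes tested 3 were higher and 4 lower, and the median log2 fold change was -0.52. For the higher members the count was 0 without N1 or without N2 or without I1 and 1 without I2, against 3 otherwise. The count of lower members was 2 without N1 or without N2 or without I1 and 12 without C1 or without C2, against 4 otherwise. NRT2.1 (AT1G08090), the main high-affinity nitrate carrier, was measured at RPKM of 111 and 105 with nanoparticles, 0.0855 and 1.07 with ions and 55.6 and 15.5 in controls. NRT3.1 (AT5G50200), its partner protein, had RPKM of 175 and 182 with nanoparticles, 12.2 and 18.3 with ions and 118 and 56.4 in controls. Both fell to a small part of the nanoparticle level: NRT2.1 was 176-fold lower (log2 fold change -6.18 ± 0.57 SE, adjusted p = 8.07e-04) and NRT3.1 11.5-fold lower (log2 fold change -3.49 ± 0.36 SE, adjusted p = 0.0012). AMT1;3 (AT3G24300), an ammonium carrier of the root surface, was at RPKM of 27.2 and 30 with nanoparticles, 0.462 and 0.559 with ions and 21.9 and 1.37 in controls. C2 lay near the ion libraries, and AMT1;3 was 55.6-fold lower (log2 fold change -4.29 ± 0.91 SE, adjusted p = 0.0165), with an adjusted p of 0.0715 without N1, 0.0936 without N2, 0.11 without I1 and 0.0933 without I2. NIA2 (AT1G37130), a nitrate reductase, was measured at RPKM of 56.5 and 51.5 with nanoparticles, 168 and 176 with ions and 53.7 and 28.8 in controls. NIA2 rose, 3.18-fold higher (log2 fold change 1.65 ± 0.29 SE, adjusted p = 0.0088), with an adjusted p of 0.0554 without N1, 0.0814 without N2, 0.0639 without I1 and 0.0645 without I2. NIA1 (AT1G77760, the second nitrate reductase) was lower in both ion libraries and did not pass (log2 fold change -0.87 ± 0.43 SE, adjusted p = 0.177, but 0.00668 without C1 and 0.00773 without C2). GLN1;3 (AT3G17820, a cytosolic glutamine synthetase) was 2.23-fold higher (log2 fold change 1.16 ± 0.22 SE, adjusted p = 0.0112), with an adjusted p of 0.0651 without N1, 0.142 without N2 and 0.0803 without I1, and AMT2 (AT2G38290, a second type of ammonium carrier) 2.17-fold higher (log2 fold change 1.03 ± 0.28 SE, adjusted p = 0.0364), with 0.149 without N1, 0.205 without N2, 0.0946 without I1 and 0.179 without I2. The plot of nutrient genes shows 15 of these genes library by library.

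**Figure D3:**
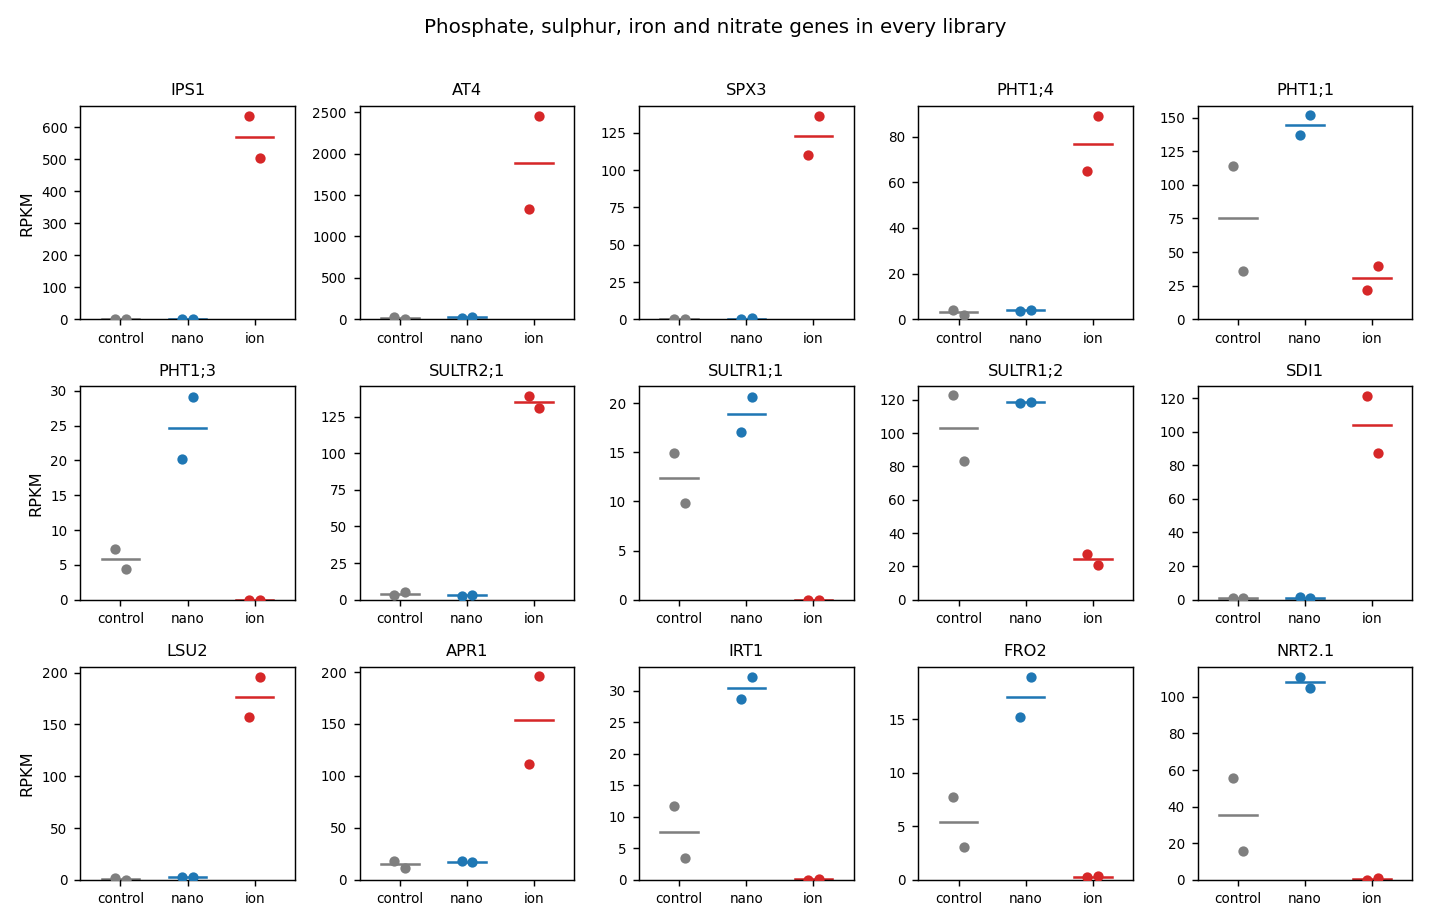
RPKM of 15 phosphate, sulphur, iron and nitrate genes in each library (points; 1 panel a gene, 2 control, 2 nanoparticle and 2 ion libraries). IPS1, AT4, SPX3, PHT1;4, SULTR2;1, SDI1, LSU2 and APR1 stand high in the ion libraries, and PHT1;1, PHT1;3, SULTR1;1, SULTR1;2, IRT1, FRO2 and NRT2.1 stand high in the nanoparticle libraries.

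Glutathione transferases, which join glutathione to reactive compounds, were mostly higher: 13 of 19 in ion roots, with 2 lower and a median log2 fold change of 1.39. The higher count was 7 without N1, 6 without N2 and 8 without I2, against 13 otherwise. GSTU4 (AT2G29460), of the tau class, had RPKM of 0.32 and 0.861 with nanoparticles, 11.8 and 19.8 with ions and 0.533 and 1.13 in controls. GSTU8 (AT3G09270), of the same class, was at RPKM of 9.65 and 6.21 with nanoparticles, 76 and 102 with ions and 6.29 and 5.55 in controls. For both, each ion library was above all other libraries. GSTU4 was 27.2-fold higher (log2 fold change 3.38 ± 0.33 SE, adjusted p = 9.68e-04) and GSTU8 11.4-fold higher (log2 fold change 3.35 ± 0.25 SE, adjusted p = 4.80e-04). GSTU24 (AT1G17170), another tau-class enzyme, was measured at RPKM of 3.39 and 3.82 with nanoparticles, 20.6 and 46.8 with ions and 3.47 and 2.22 in controls. I2 held more than I1, and GSTU24 was 9.61-fold higher (log2 fold change 2.80 ± 0.38 SE, adjusted p = 0.00336). GSTF2 (AT4G02520), an abundant phi-class enzyme, had RPKM of 535 and 613 with nanoparticles, 186 and 240 with ions and 477 and 312 in controls. Both ion libraries were below all others, and GSTF2 was 2.68-fold lower (log2 fold change -1.44 ± 0.29 SE, adjusted p = 0.0145), with an adjusted p of 0.084 without N1, 0.137 without N2, 0.107 without I1 and 0.0549 without I2. GSTU9 (AT5G62480) was 2.7-fold lower (log2 fold change -1.36 ± 0.20 SE, adjusted p = 0.00472), with an adjusted p of 0.0683 without N2.

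Of 18 genes for reactive oxygen enzymes and their signalling, 6 were higher and 2 lower (median log2 fold change 0.38). FSD1 (AT4G25100), an iron superoxide dismutase, was at RPKM of 8.68 and 10.1 with nanoparticles, 49.2 and 86.1 with ions and 7.62 and 9.59 in controls. OXI1 (AT3G25250), a protein kinase activated by oxidants, was measured at RPKM of 0.578 and 0.613 with nanoparticles, 8.85 and 7.65 with ions and 0.826 and 0.583 in controls. ZAT12 (AT5G59820), a zinc-finger protein of many stress responses, had RPKM of 10.9 and 12.8 with nanoparticles, 42.3 and 48.8 with ions and 11.3 and 6.27 in controls. All 3 were above every other library in both ion libraries. FSD1 was 7.33-fold higher (log2 fold change 2.67 ± 0.29 SE, adjusted p = 0.00136), OXI1 13.8-fold higher (log2 fold change 2.53 ± 0.21 SE) and ZAT12 3.86-fold higher (log2 fold change 1.86 ± 0.27 SE, adjusted p = 0.00455). CAT2 (AT4G35090), a catalase, which breaks down hydrogen peroxide, was at RPKM of 206 and 238 with nanoparticles, 74.4 and 61.2 with ions and 229 and 347 in controls. Both catalases were lower in the ion roots than in all other libraries. CAT2 was 3.3-fold lower (log2 fold change -1.70 ± 0.26 SE, adjusted p = 0.00523), with an adjusted p of 0.0646 without N2, and CAT1 (AT1G20630, a second catalase) 2.01-fold lower (log2 fold change -0.96 ± 0.22 SE, adjusted p = 0.023), with 0.112 without N1, 0.186 without N2, 0.0606 without I1 and 0.125 without I2.

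Heat shock and protein folding genes were higher at 9 of 13, none was lower, and the median log2 fold change was 1.23. The number higher was 5 without N1 or without I2 and 4 without N2 or without I1, against 9 otherwise. BIP3 (AT1G09080), a chaperone of the endoplasmic reticulum induced by unfolded proteins, was measured at RPKM of 0.103 and 0.0335 with nanoparticles, 7.6 and 6.5 with ions and 0.0326 and 0.173 in controls. HSFA2 (AT2G26150), a heat shock transcription factor, had RPKM of 0.255 and 0.2 with nanoparticles, 3.2 and 4.49 with ions and 0.194 and 0.308 in controls. HSP90.1 (AT5G52640), a cytosolic chaperone, was at RPKM of 2.28 and 2.64 with nanoparticles, 10.1 and 9.64 with ions and 1.84 and 3.31 in controls. None of them overlapped with any nanoparticle or control library. BIP3 was 103-fold higher (log2 fold change 2.91 ± 0.22 SE), HSFA2 17.1-fold higher (log2 fold change 1.97 ± 0.24 SE) and HSP90.1 4-fold higher (log2 fold change 1.65 ± 0.25 SE, adjusted p = 0.00505). HSP101 (AT1G74310, a chaperone that dissolves protein aggregates) was 2-fold higher (log2 fold change 0.81 ± 0.20 SE, adjusted p = 0.0261), with an adjusted p of 0.156 without N1, 0.186 without N2, 0.065 without I1 and 0.109 without I2.

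Defence genes of the salicylate branch were higher at 14 of 20, with none lower and a median log2 fold change of 2.09. The count was 13, 12, 12 and 12 without N1, N2, I1 and I2. ICS1 (AT1G74710), isochorismate synthase, which makes the precursor of salicylate, was measured at RPKM of 6 and 5.51 with nanoparticles, 17.9 and 17.9 with ions and 5.26 and 6.35 in controls. NIMIN1 (AT1G02450), a protein that binds the salicylate co-activator NPR1, had RPKM of 0 and 0.262 with nanoparticles, 37.5 and 29.7 with ions and 0.255 and 0 in controls. WRKY62 (AT5G01900), a transcription factor of this branch, was at RPKM of 1.41 and 0.872 with nanoparticles, 97.2 and 79.9 with ions and 1.34 and 0.374 in controls. ICS1 was at the same level in both ion libraries, above all others, and 3.12-fold higher (log2 fold change 1.49 ± 0.19 SE, adjusted p = 0.00248). NIMIN1 was higher by a ratio of reads of 251, exact 95% counting interval 69.2 to 2082 (log2 fold change 4.94 ± 0.25 SE), and WRKY62 77.2-fold higher (log2 fold change 5.39 ± 0.30 SE, adjusted p = 1.49e-04). GRX480 (AT1G28480), a glutaredoxin induced by salicylate, was measured at RPKM of 0.242 and 0.355 with nanoparticles, 19.1 and 29.2 with ions and 0.46 and 0.609 in controls. GRX480 was 82.1-fold higher (log2 fold change 4.25 ± 0.26 SE). PR1, the usual marker of this branch, did not pass the filter on low values and was not tested.

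In the jasmonate branch 11 of 25 genes were higher and 2 lower (median log2 fold change 0.79). Members higher numbered 7 without N2, against 11 otherwise. JAZ10 (AT5G13220), a repressor of jasmonate signalling that jasmonate itself induces, had RPKM of 1.26 and 2.05 with nanoparticles, 15 and 28.8 with ions and 3.01 and 2.16 in controls. JAZ5 (AT1G17380), another such repressor, was at RPKM of 3.07 and 2.13 with nanoparticles, 18.3 and 22.9 with ions and 2.56 and 2.84 in controls. JAZ1 (AT1G19180), also a repressor, was measured at RPKM of 33.3 and 33 with nanoparticles, 140 and 144 with ions and 35.4 and 39.3 in controls. Each was above all other libraries in I1 and I2. JAZ10 was 13.5-fold higher (log2 fold change 3.06 ± 0.34 SE, adjusted p = 0.00155), JAZ5 8-fold higher (log2 fold change 2.59 ± 0.23 SE, adjusted p = 7.03e-04) and JAZ1 4.28-fold higher (log2 fold change 2.06 ± 0.17 SE, adjusted p = 5.57e-04). ORA59 (AT1G06160), a factor joining jasmonate and ethylene signals, had RPKM of 8.87 and 7.7 with nanoparticles, 0.61 and 0.603 with ions and 5.71 and 3.06 in controls. These went the other way without overlap: ORA59 was 13.7-fold lower (log2 fold change -2.53 ± 0.28 SE, adjusted p = 0.00148), and JAZ9 (AT1G70700) 2.5-fold lower (log2 fold change -1.18 ± 0.17 SE, adjusted p = 0.00432), with an adjusted p of 0.0516 without N1 and 0.065 without N2. MYC2 (AT1G32640, the central transcription factor of the branch) overlapped between groups (log2 fold change -0.09 ± 0.18 SE, adjusted p = 0.755).

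Genes of immunity to microbial patterns divided: 3 of 15 were higher and 4 lower, with a median log2 fold change of -0.04 that turned to 0.39 with an RPKM filter of 5, 0.20 without N1 and 0.27 without I1. For the higher members the count was 1 without N1 or without N2 or without I1 or without I2, against 3 otherwise. The count of lower members was 1 without N1 and 2 without N2 or without I1 or with an RPKM filter of 5, against 4 otherwise. CYP71A12 (AT2G30750), an enzyme of indole defence compounds, was at RPKM of 2.75 and 1.47 with nanoparticles, 19.6 and 36.7 with ions and 5.44 and 1.6 in controls. CYP71A12 was 13.7-fold higher (log2 fold change 3.19 ± 0.49 SE, adjusted p = 0.00525). PROPEP1 (AT5G64900), the precursor of a danger peptide, was measured at RPKM of 22.5 and 23.5 with nanoparticles, 73.3 and 71.4 with ions and 25.5 and 13.2 in controls. PROPEP1 was 3.14-fold higher (log2 fold change 1.61 ± 0.29 SE, adjusted p = 0.00961), with an adjusted p of 0.0669 without N1, 0.0729 without N2, 0.0745 without I1 and 0.0647 without I2. PEPR2 (AT1G17750, a receptor of such peptides) was 2.9-fold higher (log2 fold change 1.15 ± 0.28 SE, adjusted p = 0.026), with 0.0677 without N1, 0.201 without N2, 0.0708 without I1 and 0.126 without I2. FLS2 (AT5G46330), the receptor of bacterial flagellin, had RPKM of 2.86 and 1.88 with nanoparticles, 0.414 and 0.188 with ions and 2.96 and 2.72 in controls. WAK5 (AT1G21230), a wall-associated kinase, was at RPKM of 3.88 and 4.74 with nanoparticles, 0.442 and 0.733 with ions and 3.57 and 3.45 in controls. MYB51 (AT1G18570), a regulator of indole glucosinolates, was measured at RPKM of 28.1 and 32.9 with nanoparticles, 9.87 and 15.1 with ions and 34.9 and 47 in controls. All 3 were lowest in the 2 ion libraries. FLS2 was 8.08-fold lower (log2 fold change -1.36 ± 0.24 SE, adjusted p = 0.0089), with an adjusted p of 0.0766 without N1 and 0.0521 without I2, WAK5 7.21-fold lower (log2 fold change -1.74 ± 0.22 SE, adjusted p = 0.00241), and MYB51 2.41-fold lower (log2 fold change -1.25 ± 0.26 SE, adjusted p = 0.0151), with 0.0711 without N1, 0.132 without N2 and 0.0942 without I1. FRK1 (AT2G19190, a receptor-like kinase induced by flagellin) overlapped (log2 fold change -0.04 ± 0.32 SE, adjusted p = 0.945), and WRKY33 (AT2G38470, a regulator of camalexin) was lower in both ion libraries without passing (log2 fold change -0.29 ± 0.21 SE, adjusted p = 0.345).

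Of 18 indole glucosinolate genes 6 were higher and 5 lower (median log2 fold change 0.64). The higher count was 2 without N1 or without I2, 0 without N2, 3 without I1 and 10 without C1 or without C2, against 6 otherwise. The number lower was 3 without N1 or without N2 or without I1, against 5 otherwise. IGMT1 (AT1G21100), which methylates indole glucosinolates, had RPKM of 102 and 104 with nanoparticles, 2.05 and 1.98 with ions and 133 and 103 in controls. IGMT2 (AT1G21120), its neighbour and close copy, was at RPKM of 20.3 and 15.7 with nanoparticles, 1.55 and 2.48 with ions and 17.2 and 12.6 in controls. Both were far below every other library in ion roots, with the caution that reads of close copies may be split: IGMT1 was 51.2-fold lower (log2 fold change -5.11 ± 0.19 SE, adjusted p = 4.45e-05) and IGMT2 8.77-fold lower (log2 fold change -2.66 ± 0.26 SE, adjusted p = 9.68e-04). PEN2 (AT2G44490), a myrosinase of this pathway, was measured at RPKM of 81.3 and 78 with nanoparticles, 20.6 and 16.2 with ions and 78.1 and 107 in controls. PEN2 was 4.37-fold lower (log2 fold change -2.07 ± 0.22 SE, adjusted p = 0.00134). CYP79B2 (AT4G39950), which makes the indole precursor, had RPKM of 40.1 and 39.1 with nanoparticles, 102 and 133 with ions and 34.6 and 17.5 in controls. The 3 P450 enzymes were above all other libraries. CYP79B2 was 2.99-fold higher (log2 fold change 1.53 ± 0.32 SE, adjusted p = 0.0157), with an adjusted p of 0.086 without N1, 0.109 without N2, 0.0669 without I1 and 0.103 without I2. CYP81F3 (AT4G37400, which modifies the indole ring) was 3.6-fold higher (log2 fold change 1.64 ± 0.26 SE, adjusted p = 0.00566), with 0.0621 without N2, and CYP81F1 (AT4G37430, an enzyme of the same family) 9.45-fold higher (log2 fold change 1.35 ± 0.23 SE, adjusted p = 0.00768), with 0.0796 without N2. CYP83B1 (AT4G31500, the next enzyme after CYP79B2) was lower in both ion libraries and did not pass (log2 fold change -0.54 ± 0.21 SE, adjusted p = 0.106, but 0.0272 without C1 and 0.0275 without C2).

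Among 10 genes of aliphatic glucosinolates and thiocyanate methylation, 3 were higher and none lower (median log2 fold change 0.44). Members higher numbered 1 without N1 or without N2 or without I2, against 3 otherwise. HOL2 (AT2G43920), a methyltransferase of the family that methylates thiocyanate, was at RPKM of 1.31 and 6.22 with nanoparticles, 468 and 389 with ions and 2.04 and 0.419 in controls. HOL2 was 112-fold higher (log2 fold change 6.71 ± 0.57 SE, adjusted p = 6.27e-04). MYB28 (AT5G61420), the main regulator of aliphatic glucosinolates, was measured at RPKM of 48.6 and 47.5 with nanoparticles, 70.6 and 122 with ions and 41.6 and 35.6 in controls. MYB28 was 2.04-fold higher (log2 fold change 0.94 ± 0.27 SE, adjusted p = 0.0468), with an adjusted p of 0.186 without N1, 0.242 without N2 and 0.167 without I2, and CYP79F2 (AT1G16400, an early enzyme of their synthesis) 3.28-fold higher (log2 fold change 1.58 ± 0.36 SE, adjusted p = 0.0209), with 0.0974 without N1, 0.128 without N2 and 0.115 without I2.

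Auxin genes were higher at 11 of 28, with none lower (median log2 fold change 0.52). For the higher members the count was 2 without N1, 1 without N2 and 4 without I1, against 11 otherwise. YUC9 (AT1G04180), an enzyme of the last step of auxin synthesis, had RPKM of 1.77 and 1.12 with nanoparticles, 7.25 and 11.8 with ions and 1.42 and 1.5 in controls. TAA1 (AT1G70560), an enzyme of the step before it, was at RPKM of 5.96 and 5.32 with nanoparticles, 23.1 and 13.2 with ions and 6.46 and 5.85 in controls. PILS5 (AT2G17500), an auxin carrier of the endoplasmic reticulum, was measured at RPKM of 18.8 and 17.2 with nanoparticles, 40.5 and 50.9 with ions and 18.2 and 17.9 in controls. All 3 were highest in the ion libraries. YUC9 was 6.71-fold higher (log2 fold change 2.08 ± 0.28 SE, adjusted p = 0.00318), TAA1 3.15-fold higher (log2 fold change 1.48 ± 0.27 SE, adjusted p = 0.0105), with an adjusted p of 0.0604 without N1 and 0.092 without N2, and PILS5 2.56-fold higher (log2 fold change 1.29 ± 0.18 SE, adjusted p = 0.00407), with 0.0614 without N2. PIN2 (AT5G57090, the auxin efflux carrier of the root epidermis and cortex) overlapped between groups (log2 fold change 0.31 ± 0.23 SE, adjusted p = 0.37), and so did IAA19 (AT3G15540, an auxin-induced repressor) (log2 fold change 0.30 ± 0.38 SE, adjusted p = 0.592).

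Of 9 ethylene genes 1 was higher and 3 were lower, with a median log2 fold change of -0.23 that was 0.07 without I1. The count of lower members was 1 without N1 or without N2 or without I1 or without I2, against 3 otherwise. EBF2 (AT5G25350), which marks the regulator EIN3 for degradation, had RPKM of 94.4 and 96.1 with nanoparticles, 32.6 and 35.2 with ions and 90.6 and 91.6 in controls. EBF2 was 2.8-fold lower (log2 fold change -1.46 ± 0.17 SE, adjusted p = 0.00166). ACS6 (AT4G11280), an enzyme that makes the ethylene precursor, was at RPKM of 8.64 and 6.8 with nanoparticles, 15.7 and 20.2 with ions and 7.6 and 9.54 in controls. The isoforms differed in direction. ACS6 was 2.35-fold higher (log2 fold change 1.12 ± 0.23 SE, adjusted p = 0.0142), with an adjusted p of 0.061 without N1, 0.143 without N2 and 0.0872 without I2, and ACS2 (AT1G01480, another isoform) 3.77-fold lower (log2 fold change -0.91 ± 0.22 SE, adjusted p = 0.0277), with 0.174 without N1, 0.123 without N2, 0.0581 without I1 and 0.0957 without I2. ERF1 (AT3G23240, a response factor) was higher in both ion libraries and did not pass (log2 fold change 0.75 ± 0.25 SE, adjusted p = 0.0692).

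Of 15 genes of abscisic acid and cold-type protection, 5 were higher and 1 was lower (median log2 fold change 0.46). The higher count was 2 without N1 or without I2 and 3 without N2 or without I1, against 5 otherwise. KIN1 (AT5G15960), a protective protein of cold and drought, was measured at RPKM of 0.66 and 2.2 with nanoparticles, 33.9 and 88.9 with ions and 2.89 and 0.133 in controls. P5CS1 (AT2G39800), which makes proline, had RPKM of 4.61 and 5.52 with nanoparticles, 17.9 and 20.8 with ions and 5.32 and 7.87 in controls. All 3 were highest in ion roots. KIN1 was 44.1-fold higher (log2 fold change 4.60 ± 0.68 SE, adjusted p = 0.00464), P5CS1 3.84-fold higher (log2 fold change 1.75 ± 0.23 SE, adjusted p = 0.00311) and HAI1 (AT5G59220, a phosphatase of abscisic acid signalling) 6.17-fold higher (log2 fold change 1.80 ± 0.33 SE, adjusted p = 0.00965), the last with an adjusted p of 0.0685 without N1, 0.0583 without I1 and 0.0638 without I2. RD26 (AT4G27410, a transcription factor induced by drought) was 2.29-fold lower (log2 fold change -1.10 ± 0.23 SE, adjusted p = 0.0152), with an adjusted p of 0.0608 without N1, 0.156 without N2 and 0.102 without I1, and RD29A (AT5G52310, a common reporter of drought and cold) did not pass (log2 fold change 0.74 ± 0.33 SE, adjusted p = 0.15).

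In the low-oxygen list 2 of 10 genes were higher and 1 was lower, 30% against 25.3% of all loci, and the median log2 fold change of 0.32 was -0.16 without I2. HRE1 (AT1G72360), a transcription factor of the response to low oxygen, was at RPKM of 272 and 242 with nanoparticles, 44.4 and 45.1 with ions and 193 and 298 in controls. HRE2 (AT2G47520), its relative, was measured at RPKM of 0.212 and 0.104 with nanoparticles, 6.76 and 7.8 with ions and 0.404 and 0.107 in controls. The pair moved in opposite directions without overlap. HRE1 was 5.73-fold lower (log2 fold change -2.49 ± 0.25 SE, adjusted p = 0.00107) and HRE2 higher by a ratio of reads of 46.5, exact 95% counting interval 15.6 to 229 (log2 fold change 2.84 ± 0.23 SE). SUS4 (AT3G43190, a sucrose synthase) was 4.25-fold higher (log2 fold change 2.01 ± 0.46 SE, adjusted p = 0.0218), with an adjusted p of 0.0766 without N1, 0.14 without N2, 0.0909 without I1 and 0.132 without I2. For the fermentation enzymes both ion libraries were above both nanoparticle libraries, I2 by more, and neither ADH1 (AT1G77120, alcohol dehydrogenase) (log2 fold change 1.33 ± 0.41 SE, adjusted p = 0.0543, but 0.0333 without C1, 0.0344 without C2 and 0.0235 without I1) nor PDC1 (AT4G33070, pyruvate decarboxylase) (log2 fold change 0.95 ± 0.43 SE, adjusted p = 0.148) passed.

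Root hair genes showed the lowest median of all lists. Of 19 tested, 14 were lower in ion than in nanoparticle roots and 1 was higher, with a median log2 fold change of -3.09, or -3.25 with RSL4 at its bound; 13, 11, 12 and 11 were lower without N1, N2, I1 and I2. In whole roots, fewer cells of a type and less RNA per cell cannot be told apart. RHD6 (AT1G66470), which starts root hairs, had RPKM of 6.42 and 4.41 with nanoparticles, 14 and 10.1 with ions and 6.71 and 6.63 in controls. RSL4 (AT1G27740), the factor that drives hair growth, was at RPKM of 1.67 and 1.83 with nanoparticles, 0 and 0 with ions and 3.01 and 1.1 in controls. The initiator was higher in both ion libraries, and RHD6 was 2.2-fold higher (log2 fold change 1.03 ± 0.24 SE, adjusted p = 0.0246), with an adjusted p of 0.0631 without N1, 0.215 without N2, 0.143 without I1 and 0.0539 without I2. RSL4 had no read in either ion library and was at least 17.5-fold lower (log2 fold change -1.46 ± 0.33 SE, adjusted p = 0.0199), with an adjusted p of 0.0914 without N1, 0.125 without N2, 0.0991 without I1 and 0.0885 without I2. RHS13 (AT4G02270), named for its specific expression in hairs, was measured at RPKM of 81.7 and 100 with nanoparticles, 0.977 and 0.657 with ions and 49.8 and 16.6 in controls. RHS19 (AT5G67400), a peroxidase-family hair gene, had RPKM of 83.6 and 97.5 with nanoparticles, 2.93 and 1.21 with ions and 51 and 29.6 in controls. PRP3 (AT3G62680), a wall protein of hairs, was at RPKM of 29.1 and 29.6 with nanoparticles, 0.277 and 0.239 with ions and 19 and 12.1 in controls. All 3 stood at under 3 RPKM in ion roots and were highest with nanoparticles. RHS13 was 113-fold lower (log2 fold change -5.66 ± 0.46 SE, adjusted p = 5.64e-04), RHS19 45.1-fold lower (log2 fold change -4.95 ± 0.35 SE, adjusted p = 3.72e-04) and PRP3 114-fold lower (log2 fold change -4.59 ± 0.24 SE, adjusted p = 1.12e-04). Root hair genes lay above the controls in nanoparticle roots by a median of 0.73, with none passing that test.

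Aquaporins, the water channels, were lower at 15 of 25, with none higher and a median log2 fold change of -1.88. The number lower was 7 without N1, 6 without N2, 5 without I1 and 8 without I2, against 15 otherwise. PIP2;4 (AT5G60660), a plasma membrane channel of roots, was measured at RPKM of 297 and 329 with nanoparticles, 5.54 and 4.24 with ions and 279 and 63.2 in controls. PIP1;5 (AT4G23400), of the same family, had RPKM of 295 and 345 with nanoparticles, 28.3 and 32.3 with ions and 263 and 123 in controls. NIP3;1 (AT1G31885), a channel of another subfamily, was at RPKM of 27.8 and 31.1 with nanoparticles, 1.92 and 1.44 with ions and 24.4 and 13.2 in controls. The ion libraries were below all others. PIP2;4 was 64.7-fold lower (log2 fold change -5.74 ± 0.61 SE, adjusted p = 0.00131), PIP1;5 10.5-fold lower (log2 fold change -3.36 ± 0.35 SE, adjusted p = 0.00129) and NIP3;1 17.7-fold lower (log2 fold change -3.51 ± 0.29 SE, adjusted p = 6.20e-04). PIP2;1 (AT3G53420), a major plasma membrane channel, was measured at RPKM of 3158 and 3542 with nanoparticles, 576 and 752 with ions and 2492 and 1305 in controls. TIP1;1 (AT2G36830), the main channel of the vacuole and the most abundant transcript of the nanoparticle roots, had RPKM of 3788 and 4407 with nanoparticles, 1119 and 1100 with ions and 3221 and 1128 in controls. TIP1;1 in the ion libraries was just below C2. PIP2;1 was 5-fold lower (log2 fold change -2.34 ± 0.42 SE, adjusted p = 0.00905), with an adjusted p of 0.0635 without N1, 0.091 without N2 and 0.0803 without I1, and TIP1;1 3.7-fold lower (log2 fold change -1.88 ± 0.53 SE, adjusted p = 0.0435), with 0.161 without N1, 0.243 without N2, 0.182 without I1 and 0.163 without I2.

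Wall-loosening genes split by member: 6 of 35 were higher and 6 lower, and the median log2 fold change of 0.05 turned to -0.08 with median-of-ratios scaling and -0.01 with quantile normalization. Members higher numbered 2 without N1 or without N2 or without I2 and 3 without I1 or with no filter on low values, against 6 otherwise. XTH14 (AT4G25820), an enzyme that cuts and joins xyloglucan, was at RPKM of 45.9 and 56.3 with nanoparticles, 2.83 and 0.709 with ions and 27 and 16.4 in controls. XTH26 (AT4G28850), of the same family, was measured at RPKM of 10.2 and 10.4 with nanoparticles, 0.148 and 0.192 with ions and 5.6 and 2.27 in controls. XTH12 (AT5G57530), also of that family, had RPKM of 8.12 and 8.82 with nanoparticles, 0 and 0.0661 with ions and 2.99 and 2.2 in controls. Ion roots held little of these 3. XTH14 was 30.2-fold lower (log2 fold change -4.34 ± 0.41 SE, adjusted p = 8.82e-04), XTH26 60.2-fold lower (log2 fold change -3.28 ± 0.34 SE, adjusted p = 0.00115) and XTH12 lower by a ratio of reads of 239, exact 95% counting interval 42.5 to 9480 (log2 fold change -3.20 ± 0.22 SE, adjusted p = 3.29e-04). XTH23 (AT4G25810) was at RPKM of 9.32 and 5.77 with nanoparticles, 29 and 55.4 with ions and 6.64 and 8.92 in controls. XTH9 (AT4G03210) was measured at RPKM of 41.4 and 40.6 with nanoparticles, 114 and 127 with ions and 36.2 and 36.1 in controls. These 2 family members were higher: XTH23 was 5.73-fold higher (log2 fold change 2.30 ± 0.35 SE, adjusted p = 0.00536) and XTH9 2.94-fold higher (log2 fold change 1.53 ± 0.17 SE, adjusted p = 0.00145). EXPA15 (AT2G03090, an expansin) was 2.91-fold higher (log2 fold change 1.51 ± 0.38 SE, adjusted p = 0.029), with an adjusted p of 0.108 without N1, 0.176 without N2, 0.119 without I1 and 0.149 without I2. CESA1 (AT4G32410, a subunit of cellulose synthase in growing walls) overlapped (log2 fold change 0.06 ± 0.18 SE, adjusted p = 0.817), and EXPA1 (AT1G69530) was above both nanoparticle libraries without passing (log2 fold change 0.21 ± 0.17 SE, adjusted p = 0.394).

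Suberin, a fatty barrier polymer of the endodermis, had 9 of 16 genes higher and 1 lower (median log2 fold change 1.27). For the higher members the count was 3 without N2, against 9 otherwise. KCS2 (AT1G04220), which lengthens fatty acids, had RPKM of 6.01 and 7.51 with nanoparticles, 41 and 49.6 with ions and 5.11 and 5.41 in controls. ABCG6 (AT5G13580), a transporter needed for suberin, was at RPKM of 6.12 and 5.23 with nanoparticles, 19.8 and 27.7 with ions and 6.19 and 4.66 in controls. All were highest in ion roots. KCS2 was 6.73-fold higher (log2 fold change 2.58 ± 0.20 SE, adjusted p = 4.92e-04), ABCG6 4.24-fold higher (log2 fold change 1.88 ± 0.24 SE, adjusted p = 0.00261), and MYB41 (AT4G28110, a regulator of suberin genes) 12.2-fold higher (log2 fold change 2.04 ± 0.34 SE, adjusted p = 0.00708), with an adjusted p of 0.0513 without N2 and 0.0528 without I2. GPAT5 (AT3G11430, an acyltransferase of suberin) was 2.64-fold higher (log2 fold change 1.23 ± 0.25 SE, adjusted p = 0.0137), with an adjusted p of 0.0632 without N1, 0.128 without N2 and 0.069 without I2. CYP86A1 (AT5G58860, which hydroxylates its fatty acids) did not pass (log2 fold change 1.09 ± 0.37 SE, adjusted p = 0.0723, but 0.0232 without C1 and 0.024 without C2), and MYB92 (AT5G10280, another regulator) was 1.94-fold lower (log2 fold change -0.96 ± 0.27 SE, adjusted p = 0.04), with 0.155 without N1, 0.23 without N2, 0.212 without I1 and 0.0597 without I2.

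For the Casparian strip, the lignin band of the endodermis, 2 of 7 genes were lower and none higher, 28.6% against 25.3% of all loci; the lower count was 0, 0, 0 and 0 without N1, N2, I1 and I2. CASP4 (AT5G06200), a scaffold protein of the strip, was measured at RPKM of 62.2 and 69.9 with nanoparticles, 24.7 and 16.9 with ions and 49.8 and 22.7 in controls. CASP4 was 3.22-fold lower (log2 fold change -1.64 ± 0.37 SE, adjusted p = 0.0201), with an adjusted p of 0.0866 without N1, 0.132 without N2, 0.0719 without I1 and 0.125 without I2. CASP5 (AT5G15290, of the same family) was lower by a ratio of reads of 27.6, exact 95% counting interval 9.14 to 137 (log2 fold change -2.05 ± 0.44 SE, adjusted p = 0.017), with 0.0744 without N1, 0.108 without N2, 0.0794 without I1 and 0.104 without I2. CASP1, whose values are given above, was lower in both ion libraries and did not pass (log2 fold change -0.73 ± 0.38 SE, adjusted p = 0.197, but 0.0126 without C1 and 0.0138 without C2). MYB36 (AT5G57620, which starts strip formation) did not pass either (log2 fold change 0.31 ± 0.20 SE, adjusted p = 0.28).

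Xylem and secondary wall genes were lower at 12 of 14, with none higher and a median log2 fold change of -1.40; the nanoparticle roots were near the controls, with a median of -0.11. The count of lower members was 7 without N1 or without I1 and 4 without N2, against 12 otherwise. XCP1 (AT4G35350), a protease of maturing xylem vessels, had RPKM of 68.2 and 68.9 with nanoparticles, 22.8 and 19.7 with ions and 88.8 and 82.3 in controls. LAC11 (AT5G03260), a laccase of lignin formation, was at RPKM of 12.2 and 12.6 with nanoparticles, 1.38 and 1.59 with ions and 11.8 and 9.09 in controls. CESA4 (AT5G44030), a cellulose synthase of secondary walls, was measured at RPKM of 17.6 and 15.3 with nanoparticles, 5.29 and 6.98 with ions and 22.8 and 19.4 in controls. Every ion value was below every other. XCP1 was 3.24-fold lower (log2 fold change -1.65 ± 0.17 SE, adjusted p = 0.00125), LAC11 8.3-fold lower (log2 fold change -2.43 ± 0.20 SE, adjusted p = 6.27e-04), and CESA4 2.65-fold lower (log2 fold change -1.30 ± 0.21 SE, adjusted p = 0.00603), with an adjusted p of 0.065 without N1 and 0.0518 without N2. TED6 (AT1G43790, a protein of tracheary element formation) was 4.9-fold lower (log2 fold change -2.04 ± 0.32 SE, adjusted p = 0.00568), with an adjusted p of 0.0573 without N2, and TED7 (AT5G48920, its relative) 7.96-fold lower (log2 fold change -1.94 ± 0.35 SE, adjusted p = 0.0098), with 0.0812 without N2 and 0.062 without I2.

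Of 17 phenylpropanoid genes 1 was higher and 1 lower, 11.8% against 25.3% of all loci (median log2 fold change 0.12, -0.02 with median-of-ratios scaling and -0.25 without I2). FAH1 (AT4G36220), an enzyme of syringyl lignin, had RPKM of 42.4 and 42.3 with nanoparticles, 3.03 and 3.09 with ions and 31.7 and 12.9 in controls. FAH1 was 13.8-fold lower (log2 fold change -3.42 ± 0.37 SE, adjusted p = 0.00145). CCR2 (AT1G80820, a cinnamoyl-CoA reductase) was 3.09-fold higher (log2 fold change 1.58 ± 0.26 SE, adjusted p = 0.00683), with an adjusted p of 0.0561 without N1, 0.0572 without N2, 0.0565 without I1 and 0.0546 without I2. PAL1 (AT2G37040, the entry enzyme) overlapped between groups (log2 fold change -0.00 ± 0.25 SE, adjusted p = 1), as did CHS (AT5G13930, the entry enzyme of flavonoids) (log2 fold change 0.57 ± 0.50 SE, adjusted p = 0.436).

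Cell cycle and replication genes were higher at 18 of 22, with none lower (median log2 fold change 0.93). At all 22 both ion libraries were above both nanoparticle libraries, against 45.5% of all loci. The higher count was 2 without N1, 0 without N2, 1 without I1, 4 without I2 and 10 with no filter on low values, against 18 otherwise. The nanoparticle roots were below the controls by a median of -0.34 and the ion roots above them by 0.54, with 4 genes passing in the latter comparison. PCNA1 (AT1G07370), the sliding clamp of DNA replication, was at RPKM of 22.7 and 20.2 with nanoparticles, 51.6 and 46 with ions and 21.5 and 22.2 in controls. CYCB1;1 (AT4G37490), a mitotic cyclin, was measured at RPKM of 8.07 and 6.27 with nanoparticles, 17.8 and 15.1 with ions and 8.07 and 11.9 in controls. All 3 were highest in the ion libraries. PCNA1 was 2.27-fold higher (log2 fold change 1.15 ± 0.17 SE, adjusted p = 0.0046), with an adjusted p of 0.0777 without N2, CYCB1;1 2.29-fold higher (adjusted p = 0.0191), with 0.0715 without N1, 0.171 without N2, 0.123 without I1 and 0.0718 without I2, and CDKB1;1 (AT3G54180, a mitotic kinase) 2.51-fold higher (log2 fold change 1.22 ± 0.26 SE, adjusted p = 0.0179), with 0.0703 without N1, 0.152 without N2 and 0.113 without I1. C2 lay between the ion libraries for CYCB1;2 (AT5G06150, another mitotic cyclin). CYCB1;2 was 2.66-fold higher (log2 fold change 1.36 ± 0.33 SE, adjusted p = 0.026), with an adjusted p of 0.0685 without N1, 0.191 without N2, 0.163 without I1 and 0.0552 without I2, and HIK (AT1G18370, a kinesin of cell division) 2.85-fold higher (log2 fold change 1.41 ± 0.28 SE, adjusted p = 0.013), with 0.0584 without N1, 0.114 without N2, 0.0983 without I1 and 0.0596 without I2.

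Genes that set the identity of the root tip were higher at 5 of 13 (median log2 fold change 0.74), and the count was 0, 0, 1 and 2 without N1, N2, I1 and I2. WOX5 (AT3G11260), of the quiescent centre, had RPKM of 1.55 and 1.51 with nanoparticles, 4.22 and 5.33 with ions and 1.56 and 1.85 in controls. RGF1 (AT5G60810), a peptide that maintains the meristem, was at RPKM of 1.52 and 1.35 with nanoparticles, 7.44 and 4.28 with ions and 1.05 and 1.67 in controls. WOX5 was 3.15-fold higher (log2 fold change 1.18 ± 0.21 SE, adjusted p = 0.00931), with an adjusted p of 0.0705 without N1 and 0.0888 without N2, and RGF1 4-fold higher (log2 fold change 1.45 ± 0.29 SE, adjusted p = 0.0131), with 0.0705 without N1, 0.1 without N2 and 0.065 without I1. PLT1 (AT3G20840), a meristem regulator, was measured at RPKM of 4.24 and 3.05 with nanoparticles, 8.55 and 8.8 with ions and 4.65 and 8.31 in controls. C2 was close to the ion libraries at PLT1 and BBM (AT5G17430, of the same family). PLT1 was 2.39-fold higher (log2 fold change 1.07 ± 0.28 SE, adjusted p = 0.0355), with an adjusted p of 0.0972 without N1, 0.244 without N2, 0.149 without I1 and 0.141 without I2, and BBM 2.43-fold higher (log2 fold change 1.13 ± 0.29 SE, adjusted p = 0.0313), with 0.173 without N1, 0.128 without N2, 0.119 without I1 and 0.149 without I2. SCR, given above, did not pass (log2 fold change 0.24 ± 0.17 SE, adjusted p = 0.354). In the DNA damage list 2 of 12 genes (16.7%, against 13.3% of all loci) were higher (median log2 fold change 0.55), and none was with median-of-ratios scaling. SMR5 (AT1G07500, an inhibitor of the cell cycle) was 3.29-fold higher (log2 fold change 1.53 ± 0.45 SE, adjusted p = 0.0493), with an adjusted p of 0.229 without N1, 0.119 without N2, 0.136 without I1 and 0.221 without I2, and TSO2 (AT3G27060, a ribonucleotide reductase subunit) 2.78-fold higher (log2 fold change 1.45 ± 0.39 SE, adjusted p = 0.036), with 0.0967 without N1, 0.22 without N2, 0.202 without I1 and 0.105 without I2. SOG1 (AT1G25580, the main regulator of the DNA damage response) overlapped (log2 fold change -0.09 ± 0.20 SE, adjusted p = 0.784), and BRCA1 (AT4G21070, a repair protein) was higher in both ion libraries without passing (log2 fold change 0.57 ± 0.20 SE, adjusted p = 0.082, but 0.0489 without C1 and 0.0491 without C2).

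Photosynthesis genes, markers of shoot tissue, were lower at 9 of 26 with none higher (median log2 fold change -1.35), but the nanoparticle libraries were unlike each other: 22 were lower without N1, and 3 without N2, without I1 or without I2. PSBR (AT1G79040), a photosystem II subunit, had RPKM of 119 and 144 with nanoparticles, 16 and 20.8 with ions and 86.9 and 42.6 in controls. PSAF (AT1G31330), a photosystem I subunit, was at RPKM of 8.92 and 16.7 with nanoparticles, 1.54 and 1.33 with ions and 10.1 and 10.8 in controls. PSBO1 (AT5G66570), of the oxygen-evolving complex, was measured at RPKM of 26.6 and 42.5 with nanoparticles, 7.18 and 8.35 with ions and 24.4 and 34.8 in controls. Ion values were the lowest for each. PSBR was 7.09-fold lower (log2 fold change -2.78 ± 0.34 SE, adjusted p = 0.00226), PSAF 9.02-fold lower (log2 fold change -2.45 ± 0.29 SE, adjusted p = 0.00203) and PSBO1 4.44-fold lower (log2 fold change -1.99 ± 0.28 SE, adjusted p = 0.00386). RBCS1A (AT1G67090), a Rubisco subunit with close copies, among which reads may be split, had RPKM of 7.42 and 34.5 with nanoparticles, 4.51 and 5.75 with ions and 27.6 and 39.1 in controls. N1 held far less RBCS1A than N2, and RBCS1A did not pass (log2 fold change -1.50 ± 0.61 SE, adjusted p = 0.115, but 0.0106 without N1, where its log2 fold change was -2.54). RCA (AT2G39730, Rubisco activase) was 2.84-fold lower (log2 fold change -1.25 ± 0.33 SE, adjusted p = 0.0339), with an adjusted p of 0.22 without N2, 0.189 without I1 and 0.0915 without I2. The part of shoot tissue in the other results was not tested.

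Of 15 clock genes 1 was higher and 3 were lower, 26.7% against 25.3% of all loci (median log2 fold change -0.46). The number lower was 1 without N1 or without I1 or with an RPKM filter of 5 and 6 without C1 or without C2, against 3 otherwise. RVE1 (AT5G17300), a morning-expressed factor, was at RPKM of 20 and 21.3 with nanoparticles, 5.03 and 4.58 with ions and 28.2 and 36.5 in controls. RVE1 was 4.31-fold lower (log2 fold change -1.90 ± 0.19 SE, adjusted p = 0.00115). ELF4 (AT2G40080, of the evening complex) was lower by a ratio of reads of 11.4, exact 95% counting interval 3.61 to 58 (log2 fold change -1.41 ± 0.27 SE, adjusted p = 0.0122), with an adjusted p of 0.0811 without N1, 0.0776 without N2 and 0.0662 without I1, PRR5 (AT5G24470, a pseudo-response regulator) 7.2-fold lower (log2 fold change -1.24 ± 0.29 SE, adjusted p = 0.0228), with 0.146 without N1, 0.0942 without I1 and 0.103 without I2, and GI (AT1G22770, an evening-expressed regulator) 1.79-fold higher (log2 fold change 0.74 ± 0.21 SE, adjusted p = 0.0456), with 0.154 without N1, 0.306 without N2, 0.0796 without I1 and 0.194 without I2. CCA1 (AT2G46830, a core morning factor) was lower in both ion libraries without passing (log2 fold change -0.54 ± 0.25 SE, adjusted p = 0.153, but 0.0472 without C1 and 0.049 without C2), and TOC1 (AT5G61380, its evening partner) reached N2 in I2 (log2 fold change -0.25 ± 0.25 SE, adjusted p = 0.488). The time of harvest is given nowhere in the labels.

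Of 6 common reference genes tested, 2 were lower and none higher, 33.3% against 25.3% of all loci. Their median log2 fold change was -0.28. ACT2 (AT3G18780), an actin of vegetative tissue, was measured at RPKM of 596 and 649 with nanoparticles, 326 and 248 with ions and 554 and 475 in controls. ACT8 (AT1G49240), a close relative of it, had RPKM of 677 and 757 with nanoparticles, 281 and 235 with ions and 679 and 711 in controls. Both actins were below all other libraries. ACT2 was 2.19-fold lower (log2 fold change -1.13 ± 0.26 SE, adjusted p = 0.0214), with an adjusted p of 0.132 without N1, 0.198 without N2, 0.0608 without I1 and 0.116 without I2, and ACT8 2.8-fold lower (log2 fold change -1.48 ± 0.24 SE, adjusted p = 0.00702), with 0.065 without N1, 0.101 without N2 and 0.0555 without I2; reads of these close copies may be split. UBQ10 (AT4G05320, a polyubiquitin) was also lowest in the ion libraries and did not pass (log2 fold change -0.50 ± 0.23 SE, adjusted p = 0.148, but 0.0431 without C1 and 0.0435 without C2). The plot of root zones shows 6 of these lists library by library.

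**Figure D4:**
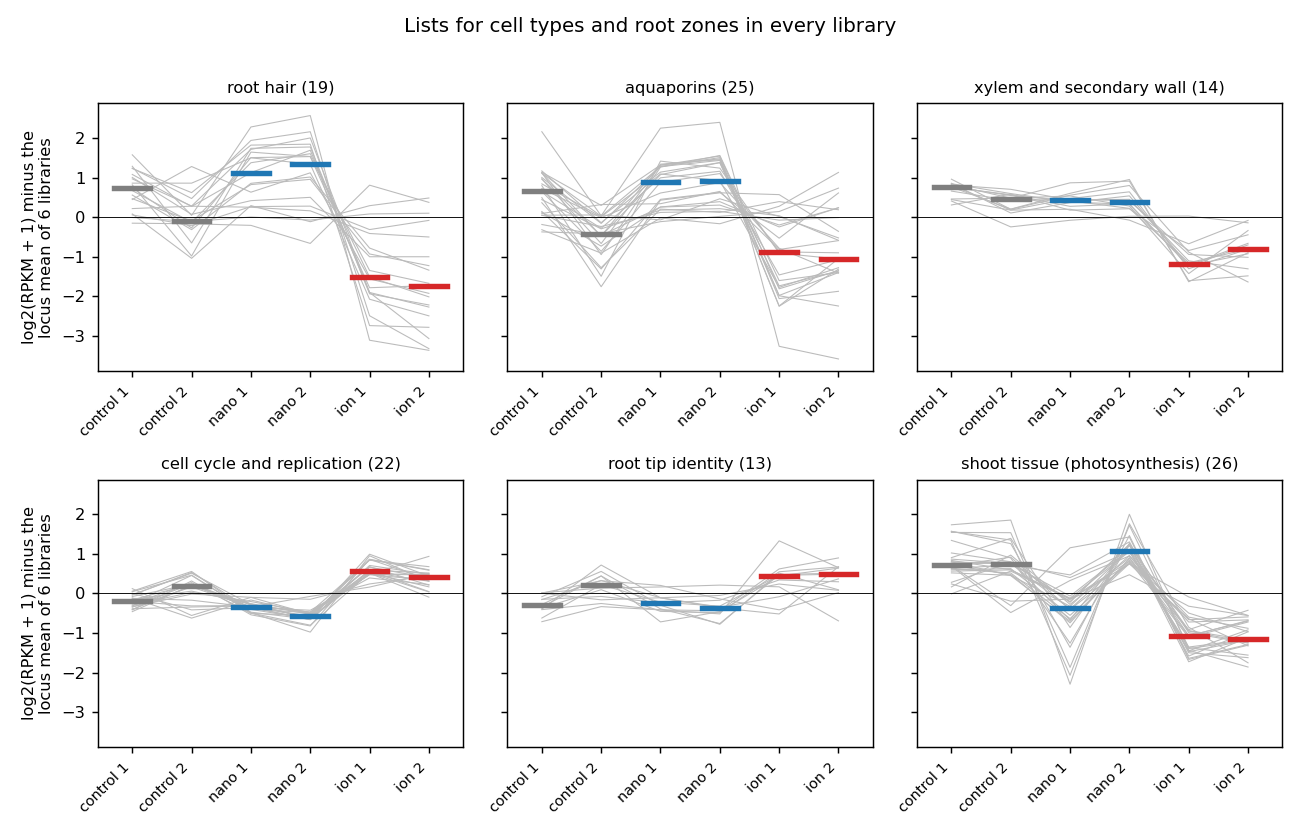
Log2(RPKM + 1) of each tested member minus its mean over the 6 libraries (grey lines) for 6 lists, with member counts in brackets and a thick bar for the list median in each library. Root hair, aquaporin and xylem bars drop in both ion libraries, cell cycle bars rise there, and photosynthesis bars differ between N1 and N2.

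Outside the lists, the loci with the largest differences were named by a rule on size, here those that no list holds. AT5G20790, annotated as an uncharacterized protein, was at RPKM of 0.195 and 0.191 with nanoparticles, 291 and 367 with ions and 0.278 and 0.393 in controls. TAT3 (AT2G24850), tyrosine aminotransferase 3, was measured at RPKM of 0.441 and 0.259 with nanoparticles, 59.6 and 189 with ions and 1.98 and 0.445 in controls. AT5G38910, a cupin-family protein, had RPKM of 0.975 and 0.636 with nanoparticles, 122 and 247 with ions and 0.309 and 0.218 in controls. Ion libraries stood far above all others at each. AT5G20790 was 1723-fold higher (log2 fold change 8.10 ± 0.20 SE), TAT3 369-fold higher (log2 fold change 6.31 ± 0.56 SE, adjusted p = 7.32e-04) and AT5G38910 235-fold higher (log2 fold change 6.60 ± 0.34 SE). AT1G08165, annotated as uncharacterized, was at RPKM of 0.674 and 0.495 with nanoparticles, 81.2 and 182 with ions and 0.161 and 0.34 in controls. It too was highest with ions, and AT1G08165 was 232-fold higher (log2 fold change 6.28 ± 0.37 SE). AT5G38930, a cupin-family protein at a neighbouring locus number, was measured at RPKM of 99.9 and 109 with nanoparticles, 0 and 0 with ions and 54.2 and 11.1 in controls. AT5G26130, of the CAP superfamily of secreted proteins, had RPKM of 390 and 423 with nanoparticles, 0 and 0 with ions and 166 and 141 in controls. AIR1 (AT4G12550), annotated as auxin-induced in root cultures, was at RPKM of 849 and 956 with nanoparticles, 4.23 and 13.8 with ions and 989 and 555 in controls. The cupins AT5G38910 and AT5G38930 differed in opposite directions. AT5G38930 was at least 623-fold lower (log2 fold change -6.72 ± 0.62 SE, adjusted p = 8.07e-04), AT5G26130 at least 1805-fold lower (log2 fold change -8.67 ± 0.17 SE, adjusted p = 1.10e-05) and AIR1 96.4-fold lower (log2 fold change -6.68 ± 0.50 SE, adjusted p = 4.68e-04). UMAMIT17 (AT4G08300), of a family of amino acid exporters, was measured at RPKM of 202 and 176 with nanoparticles, 2.02 and 1.6 with ions and 140 and 128 in controls. AT4G08380, an extensin-like wall protein, had RPKM of 52.6 and 51 with nanoparticles, 0 and 0 with ions and 23.6 and 4.95 in controls. AT5G46890, of the lipid-transfer protein superfamily, was at RPKM of 202 and 254 with nanoparticles, 2.48 and 0.678 with ions and 126 and 32.8 in controls. UMAMIT17 was 105-fold lower (log2 fold change -6.08 ± 0.18 SE, adjusted p = 2.61e-05), AT4G08380 at least 603-fold lower (log2 fold change -5.72 ± 0.58 SE, adjusted p = 0.00112) and AT5G46890 151-fold lower (log2 fold change -6.56 ± 0.62 SE, adjusted p = 8.88e-04). AT1G33840, a LURP-one-like protein, was measured at RPKM of 80.4 and 65.9 with nanoparticles, 0 and 0 with ions and 54.2 and 31.1 in controls. AT5G56100, annotated as a glycine-rich protein or oleosin, had RPKM of 120 and 161 with nanoparticles, 0.892 and 1.21 with ions and 139 and 95.9 in controls. The ion libraries were the lowest at both. AT1G33840 was at least 449-fold lower (log2 fold change -6.21 ± 0.28 SE, adjusted p = 7.90e-05) and AT5G56100 132-fold lower (log2 fold change -6.10 ± 0.25 SE, adjusted p = 6.16e-05). AT1G70880, of the polyketide cyclase superfamily, was at RPKM of 186 and 232 with nanoparticles, 2.5 and 1.98 with ions and 115 and 76.7 in controls. AT4G07820, of the CAP superfamily, was measured at RPKM of 226 and 203 with nanoparticles, 2.13 and 2.96 with ions and 185 and 21 in controls. Ion roots were again below all others, C2 being far below C1 at AT4G07820. AT1G70880 was 94.3-fold lower (log2 fold change -6.02 ± 0.25 SE, adjusted p = 6.18e-05) and AT4G07820 83.3-fold lower (log2 fold change -5.93 ± 0.86 SE, adjusted p = 0.00419).

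Near-complete losses outnumbered the reverse. In the ion libraries 76 loci had at most 3 reads in each while both nanoparticle libraries had at least 50, and 36 of them had no read in either ion library. Of the 76, 34 also had at least 50 reads in both controls. In the opposite direction 34 loci had at most 3 reads in each nanoparticle library and at least 50 in both ion libraries, 11 of them with none, and 22 of the 34 were also near 0 in both controls. These loci were picked for their values, so the counts are a description.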

How the data were processed

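RNA from Arabidopsis roots was sequenced in 6 libraries, 2 each of control, nanoparticle and ion roots. The deposited table gives RPKM per locus. TopHat2 2.0.12, HTSeq 0.6.0 and the TAIR10 build are listed, without their roles, per the submitters' processing notes. For strand handling, reads with several matches and counting settings, details were not given in the sources used here. All 6 value columns matched a library title.

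Because the RPKM values step by whole reads, reads were recovered for 24438 of 24438 loci (100%), within 1e-06 reads of a whole number, and library totals ran from 12318429 to 14489392. For 20230 loci the length used was the smallest that gives whole reads, so their absolute reads are a lower estimate. Intervals and floors cover counting error only.

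Groups were compared with limma 3.58.1 (R 4.3.3) and a trended prior, on log2(RPKM + 1), a pseudocount that understates changes of low loci. All 6 libraries shared the estimate of the spread (3 residual and 3.81 prior degrees of freedom), the contrast was two-sided, and p-values were adjusted over 19648 loci by the Benjamini-Hochberg method. Folds are ratios of a group's reads to its total reads. Of the loci tested, 353 passed the filter on low values through the ion libraries alone, 80 through the nanoparticle libraries alone and 20 through the controls alone; those had to differ between groups. The scripts were tested on simulated data.

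Members and the 38 gene lists were chosen with earlier results of these data known. Of each list, up to 3 called members in each direction with the largest log2 fold change and the first 2 members were eligible for naming, along with the 12 largest rises and the 12 largest falls at a mean of at least 5 RPKM. Symbols came from RefSeq on TAIR10.1, where 23678 loci (96.9%) matched; 21 list entries without a symbol there were dropped and 8 were not in the table. Alternatives were another pseudocount (0.1), no filter, an RPKM filter of 5, median-of-ratios and quantile scaling, the 4 ion and nanoparticle libraries alone, library weights, a replicate block, voom on the recovered reads and leaving out each library. Values of 1 list member that the naming rule selects are not reported here.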

Additional observations from a re-analysis of the deposited data

How the results depend on the processing

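Of the 178 named genes that were called, 0 changed sign under any of the 15 alternatives and 104 were called under all of them. Of the 33 named genes that were not called, 6 changed sign under some alternative (CESA1, FRK1, PAL1, SOG1, CHS and IAA19), and 14 passed the test under at least 1. With the ion and nanoparticle libraries alone 10 of these passed in limma: ADH1 (adjusted p = 0.0347), BRCA1 (0.0485), CASP1 (0.0138), CCA1 (0.0497), CYP83B1 (0.0268), CYP86A1 (0.0242), FER1 (0.0329), NIA1 (0.00748), UBQ10 (0.0425) and ZIP4 (0.0411). Those 10 and ERF1, PDC1 and PHO1 passed with library quality weights, ADH1 with voom, and RBCS1A only without N1. The calls depended most on which libraries the fit held. With 1 library left out, higher loci ranged from 589 to 4689, lower loci from 762 to 3412 and loci with at least a 2-fold change from 1351 to 3814; the low ends came without N2. Of the called named genes, 59 were lost without N1, 71 without N2, 48 without I1 and 51 without I2, and 0 without either control. With the ion and nanoparticle libraries alone in the fit 4669 loci were higher, and with library quality weights 4781, against 2622; the controls have the largest spread between libraries. Median-of-ratios scaling gave 1948 higher and 2769 lower loci, against 2622 and 2347, and lost 5 named calls. No filter on low values lost 14, quantile scaling 5, a pseudocount of 0.1 lost 2, and voom and the RPKM filter of 5 lost 1 each.

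The replicate block gave 2036 higher and 2007 lower loci and lost 9 named calls: AHA2 (limma adjusted p = 0.0686), AMT2 (0.0608), BGLU42 (0.0533), GI (0.0734), MYB28 (0.0703), PLT1 (0.06), SMR5 (0.0799), STOP1 (0.0587) and TIP1;1 (0.0516). Same-numbered libraries did not deviate together (correlations of -0.0541 between control and nanoparticle, -0.164 between control and ion and 0.0755 between nanoparticle and ion roots), so they share only a number. Depth sets a floor of 0.207 to 0.244 RPKM, which is 3 reads of a 1 kb gene.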

Other observations

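Beyond the lists, 117 families with at least 15 tested loci were looked at by the product names of the annotation, and the 5 groups below were picked after their values were seen, so no test is given. Loci with ribosomal in the product name, apart from those whose name gives an organelle or a modifying enzyme, were higher in ion than in nanoparticle roots at 95 of 345 and lower at 7 (median log2 fold change 0.65); 64 were higher with median-of-ratios scaling, and 5, 3, 5 and 29 without N1, N2, I1 and I2, against 219 without either control. Histones, around which DNA is wound, were higher at 7 of 30 loci with none lower (median 0.64), with 4 higher under median-of-ratios scaling, 1, 0, 1 and 4 without N1, N2, I1 and I2, and 15 and 14 without C1 and C2. The background was 13.3% higher and 11.9% lower.

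SAUR-like proteins, a family named for auxin response, were lower at 10 of 31 loci with none higher (median -0.60); the lower count was 3, 2, 3 and 6 without N1, N2, I1 and I2, and 4 were higher without either control, with the ion and nanoparticle libraries alone or with quality weights. The FAD-binding Berberine family was lower at 10 of 16 loci and higher at 2 (median -1.05), and lower at 5 without N1, N2 or I1; 0, 0, 2 and 1 were higher without N1, N2, I1 and I2. The cysteine/histidine-rich C1 domain family was lower at 35 of 99 loci and higher at 10 (median -0.35), and lower at 22 and 17 without N1 and N2; the higher count was 4, 3, 4 and 5 without N1, N2, I1 and I2 and 14 without either control.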
